A study of Mus musculus with 15 samples.

Results

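Mouse brain cells on day 16 of chemical induction (D16) were set against the astrocytes they are named as starting from (D0), gene by gene, across the transcriptome. Both groups came from C57BL/6 mice, with brain as the stated source, and each held 3 libraries of total RNA sequenced as paired reads. The labels call the D16 samples chemical-induced neurons and the D0 samples astrocytes. They give no age, no sorting step, no name for the chemicals and no statement that the libraries of a group came from separate cultures. A p-value here thus measures the spread between libraries of the same group, which may be technical. That spread was estimated over all 15 libraries of the series. The series title speaks of reprogramming of astrocytes in vivo, whereas the design text places these samples in vitro. Induced cells on days 4 and 8 (D4, D8) and primary neurons (PN), 3 libraries each, entered the choice of genes tested and the estimate of spread. Their levels are given below only where they are set beside those of D16 and D0. Where a gene has 3 values for a group, they are replicates 1, 2 and 3 in that order. Values are FPKM, fragments per kilobase of transcript scaled to the library total, which correct for gene length, so that levels can be set side by side between genes. Between libraries they are relative to each library's own total.

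A gene was a member of the comparison when at least 3 of the 6 D16 and D0 libraries reached 1 FPKM, and 13180 of the 24346 genes in the table did so. Of these members, 11772 reached 1 FPKM in at least 1 library of each group and are called detected in both groups. A further 825 reached it only in D16 libraries and 583 only in D0 libraries. The members of these smaller classes had to differ between the groups, so for most lists counts are given below with and without them. At the edge of the rule stood Ubxn10, whose third-highest value of 1.00027 FPKM let it in, and Ccl7, whose third-highest value of 0.998306 FPKM kept it out.

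Astrocytes are the glial cells that take up glutamate and potassium, buffer the extracellular fluid and support synapses, and in culture they divide, spread on the dish and can take on a contractile, matrix-secreting state. Neurons are non-dividing cells that fire action potentials, release transmitters from synaptic vesicles and peptides from dense-core vesicles, and extend axons along which motor proteins carry cargo. Direct conversion of astrocytes by small molecules is meant to switch off the first set of genes and switch on the second without an intermediate stem cell and without introduced factors.

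The labels were first set against marker genes of the cell types that such cultures could hold. In D16 libraries the summed level of 10 astrocyte markers was 55.4 to 68.2 FPKM, against 715 to 1648.5 FPKM in D0 libraries, and all 9 tested markers were lower. A wider list of astrocyte identity genes was less uniform, with 19 of 27 members called lower, 3 called higher and 5 not called (median change -2.17). Of the 20 detected in both groups, 2 were higher and 13 lower. The sum of 10 neuronal markers was 958 to 1003.6 FPKM in D16 libraries, against 281 to 393 FPKM in D0 libraries, and 7 of them were called higher. Most of the D0 sum was a single gene, Stmn2, a microtubule regulator of growing neurites, with 213 ± 17.8 FPKM at D16, against 304 ± 50.2 FPKM at D0 (mean ± SD, n = 3 here and below). Of the 10 neuronal markers, 4 were below 1 FPKM in every D0 library. Dcx, which binds microtubules in migrating young neurons, was below 1 FPKM at D16 and at D0, and Rbfox3, which encodes the nuclear antigen NeuN, had 5.58 ± 0.504 FPKM at D16, against 0.104 ± 0.0817 FPKM at D0.

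Markers of other cell types moved as well, and their part in the results below was not tested. The sum of 8 mural and smooth muscle markers was 4.98 to 10.8 FPKM in D16 libraries, against 2060.1 to 8415.6 FPKM in D0 libraries, with D0 replicate 2 the highest by a wide margin. Of these, 4 were called lower, and 4 were below 1 FPKM in every D16 library. Fibroblast and leptomeningeal markers summed to 22 to 41.7 FPKM at D16, against 100 to 288 FPKM at D0. That list split, with the collagens Col1a1 and Col1a2 lower, Ptgds higher with 25.3 ± 11.1 FPKM at D16, against 4.22 ± 3.61 FPKM at D0 (log2 change 2.44 ± 0.54, adjusted p = 0.0011) and Pdgfra higher with 3.52 ± 0.0623 FPKM at D16, against 0.823 ± 0.512 FPKM at D0 (log2 change 1.35 ± 0.46, adjusted p = 0.019). The call of Pdgfra was lost without D0 replicate 2 (log2 change 1.18, adjusted p = 0.07), and the list's defining gene Lum was listed at 0 in every D16 and D0 library. Ependymal markers summed to 3.54 to 6.11 FPKM at D16, against 118 to 284 FPKM at D0. Oligodendrocyte lineage markers summed to 11.7 to 13 FPKM at D16, against 239 to 391 FPKM at D0. Most of the D0 sum was Olig1, with 2.49 ± 0.583 FPKM at D16, against 242 ± 53.9 FPKM at D0, and Olig2, with 2.75 ± 0.349 FPKM at D16, against 72.4 ± 21.6 FPKM at D0, which also occur outside mature oligodendrocytes. The myelin genes Mbp and Mag were low but above D0 in every D16 library, Mbp with 1.37 ± 0.188 FPKM at D16, against 0.311 ± 0.0677 FPKM at D0. Markers of cycling cells summed to 1.37 to 3.13 FPKM at D16, against 225 to 304 FPKM at D0. Microglial markers summed to 0.09 to 0.935 FPKM at D16, with Cx3cr1, C1qb, Tyrobp and P2ry12 listed at 0 in all 3 libraries, against 1.49 to 23.2 FPKM at D0. The sums of endothelial markers and of Schwann and neural crest markers overlapped between the groups, at 0.903 to 1.75 FPKM and 11.6 to 17.8 FPKM at D16, against 1.45 to 1.96 FPKM and 3.31 to 20.5 FPKM at D0. In the Schwann and neural crest list 2 markers were nonetheless called higher and 0 lower. These were Foxd3 (4.03 ± 0.103 FPKM at D16, against 0.0591 ± 0.0232 FPKM at D0, log2 change 2.248 ± 0.155, adjusted p = 1.2e-08) and Erbb3 (1.83 ± 0.647 FPKM at D16, against 0.339 ± 0.119 FPKM at D0, log2 change 1.06 ± 0.20, adjusted p = 0.00032). Both reached 1 FPKM in D16 libraries only. In such bulk samples a loss of cells of a type and a loss of its RNA from each cell cannot be told apart.

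**Figure D1:**
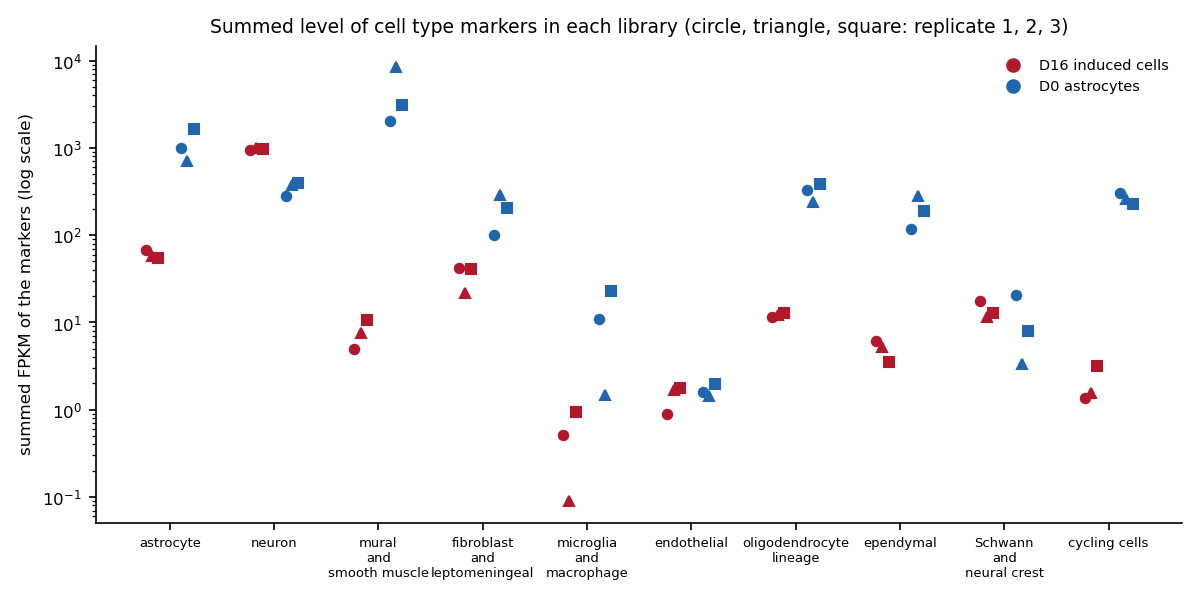
Summed FPKM (log scale) of the markers of 10 cell types in each library, D16 libraries in red on the left of each pair and D0 libraries in blue on the right; circles, triangles and squares are replicates 1, 2 and 3. Neuronal markers are higher in all 3 D16 libraries, while astrocyte, mural, fibroblast, oligodendrocyte lineage, ependymal and cycling-cell markers are lower in all 3.

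Of the 13180 members, 2258 were called higher at D16 and 2582 lower, and 8340 were not called. A call required a change of at least 1 on the log2(FPKM + 1) scale and an adjusted p below 0.05 in a limma fit of all 15 libraries of the series. Over all 13983 genes tested in that fit, 35.3% were called, 16.6% higher and 18.7% lower, and these shares are the background for each gene group below. Among members detected in both groups, 1513 were higher and 2053 lower of 11772. The median change was -0.03 over all members and -0.05 over those detected in both groups. A change of at least 3 on the log2 scale was seen in 332 genes called higher and 389 called lower. All 3 D16 values lay above all 3 D0 values in 4298 members and below them in 4620, against 33.0% and 33.8% of all genes tested. Changes are given with their standard error, as D16 minus D0 on the log2(FPKM + 1) scale, on which weakly expressed genes show too small a change.

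**Figure D2:**
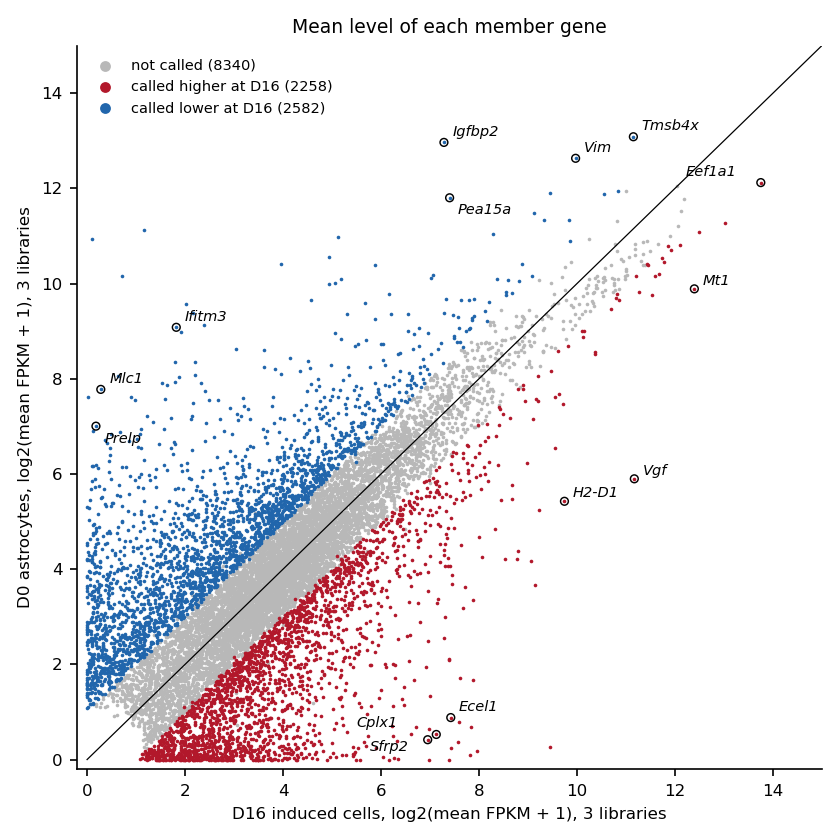
Mean level of the 13180 members at D16 (horizontal axis) and at D0 (vertical axis), as log2 of the mean FPKM plus 1, n = 3 libraries each; red points are the 2258 genes called higher at D16, blue points the 2582 called lower, grey points the 8340 not called, and the line marks equal levels. Genes such as Cplx1 and Sfrp2 lie along the bottom edge with almost no D0 level, and Mlc1 and Prelp along the left edge with almost no D16 level.

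The libraries were alike in broad terms. FPKM totals were 598732.2 to 661015.2 in D16 libraries and 603943.5 to 703459.4 in D0 libraries, and 12380 to 12718 genes reached 1 FPKM at D16, against 12072 to 12443 at D0. The 20 most abundant genes took 13.9 to 16.4% of the total at D16 and 10.8 to 14.1% at D0. Pearson correlations of log2(FPKM + 1) over genes, which are not independent replicates, were 0.966 to 0.983 between D16 libraries, 0.973 to 0.981 between D0 libraries and 0.721 to 0.782 across the groups.

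In many paralogue pairs, neurons rely more on one gene and most other cells on the other. In 12 of 33 such pairs the neuronal form was called higher and the broad or glial form lower, and in 10 more the neuronal form was higher with the broad form not called. Both forms were uncalled in 7 pairs, the broad form alone was lower in 3, and in 1 pair the neuronal form was the lower. Some of the 12 pairs do not bear out this naming in primary neurons, where the broad or glial form averaged above the neuronal form. Cplx2 had 148 ± 47.5 FPKM there and Cplx1 138 ± 44.3 FPKM. Eno1 had 283 ± 68.4 FPKM and Eno2 65.0 ± 27.1 FPKM, and Vim 374 ± 411 FPKM and Ina 151 ± 31.3 FPKM. Slc1a3 had 80.3 ± 26.4 FPKM and Slc1a1 25.5 ± 7.69 FPKM. In these 12 pairs the calls of Cplx2, Eno1, Sh3gl1, Camk2g and Camk2b were each lost when certain single libraries were left out, as given below for Cplx2.

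Several pairs belong to the vesicle cycle. Syp, the synaptophysin of synaptic vesicles, had 219, 156 and 212 FPKM at D16, against 2.202, 1.41 and 3.22 FPKM at D0, a log2 change of 5.93 ± 0.24 (adjusted p = 7.4e-11). Its broad relative Sypl had 8.198, 6.62 and 8.77 FPKM at D16, against 21.8, 20.4 and 23.3 FPKM at D0, a log2 change of -1.37 ± 0.18 (adjusted p = 1.2e-05). All D16 values of Syp were above, and all D16 values of Sypl below, every D0 value. Vamp2, the vesicle SNARE of synaptic release, was likewise higher (224 ± 10.4 FPKM at D16, against 46.04 ± 9.54 FPKM at D0, log2 change 2.28 ± 0.19, adjusted p = 1e-07) and Vamp3, its counterpart in recycling endosomes, lower (26.03 ± 5.83 FPKM at D16, against 68.7 ± 1.65 FPKM at D0, log2 change -1.39 ± 0.24, adjusted p = 0.00013). The same crossing held for Syngr3 (log2 change 3.30 ± 0.19, adjusted p = 1.9e-09) against Syngr2 (log2 change -1.27 ± 0.21, adjusted p = 8.4e-05). For Napb, Dnm1, Pacsin1 and Ap3b2 the neuronal form was higher by 3.88 ± 0.27, 3.20 ± 0.36, 2.90 ± 0.35 and 3.08 ± 0.23 on the log2 scale, while Napa, Dnm2, Pacsin2 and Ap3b1 changed by 0.33 ± 0.13, -0.68 ± 0.16, -0.65 ± 0.14 and 0.60 ± 0.15 and were not called. In these pairs the broad form kept a level of 30.9 to 92.0 FPKM at D16.

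Other pairs encode transporters, filaments and chromatin subunits. Slc1a3, the glial glutamate transporter, had 3.29, 1.04 and 1.65 FPKM at D16, against 200.1, 99.9 and 266 FPKM at D0, a log2 change of -5.94 ± 0.39 (adjusted p = 8.1e-09). Slc1a1, its neuronal counterpart, had 6.33, 6.39 and 7.16 FPKM at D16, against 0.254, 0.366 and 0.556 FPKM at D0, a log2 change of 2.46 ± 0.22 (adjusted p = 1.6e-07). Slc12a5, the chloride extruder KCC2 of mature neurons, had 64.5, 85.6 and 70.7 FPKM at D16, against 0.685, 0.271 and 0.961 FPKM at D0, a log2 change of 5.52 ± 0.32 (adjusted p = 2.3e-09). Its partner Slc12a2, the chloride loader NKCC1, was not called (13.2 ± 2.23 FPKM at D16, against 15.6 ± 2.17 FPKM at D0, log2 change -0.23, 95% interval -0.59 to 0.13). Ina, the neuronal intermediate filament internexin, had 74.9, 92.9 and 68.9 FPKM at D16, against 0.393, 0.421 and 0.107 FPKM at D0, a log2 change of 5.93 ± 0.17 (adjusted p = 6.2e-12). Vim, the filament of glia and mesenchyme, had 712, 1609.5 and 686 FPKM at D16, against 7012, 5953 and 6053 FPKM at D0, a log2 change of -2.77 ± 0.55 (adjusted p = 0.00042). D16 replicate 2 held the highest Vim level of the D16 libraries, still below each D0 library. In the chromatin-remodelling BAF complex the neuronal subunit Actl6b had 31.4, 44.7 and 37.03 FPKM at D16, against 0.202, 0 and 0 FPKM at D0, a log2 change of 5.17 ± 0.18 (adjusted p = 2.3e-11). Actl6a, the subunit of dividing progenitors, had 15.6, 7.74 and 10.8 FPKM at D16, against 41.6, 41.1 and 34.9 FPKM at D0, a log2 change of -1.75 ± 0.27 (adjusted p = 3.9e-05).

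Several metabolic and microtubule pairs were not called. The neuronal enolase Eno2 was higher (266 ± 42.2 FPKM at D16, against 18.03 ± 2.59 FPKM at D0, log2 change 3.81 ± 0.27, adjusted p = 1.5e-08), but no form was called for the glucose transporters Slc2a3 (log2 change 0.42, 95% interval -0.19 to 1.04) and Slc2a1 (log2 change 0.06, 95% interval -0.45 to 0.57), nor for the lactate dehydrogenases Ldhb (log2 change -0.26, 95% interval -0.64 to 0.13) and Ldha (log2 change -0.32, 95% interval -0.77 to 0.14). Map2, the dendritic microtubule protein, was not called (30.9 ± 4.43 FPKM at D16, against 22.3 ± 9.69 FPKM at D0, log2 change 0.53, 95% interval 0.01 to 1.05), nor was Stmn2 (log2 change -0.50, 95% interval -0.92 to -0.08). Ptbp1, the splicing repressor of non-neuronal cells, had 47.6, 51.3 and 43.5 FPKM at D16, against 124, 128 and 123 FPKM at D0, a log2 change of -1.38 ± 0.26 (adjusted p = 0.00029). Its neuronal paralogue Ptbp2 was not called (19.7 ± 7.39 FPKM at D16, against 14.3 ± 3.74 FPKM at D0, log2 change 0.40, 95% interval -0.20 to 1.01).

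**Figure D3:**
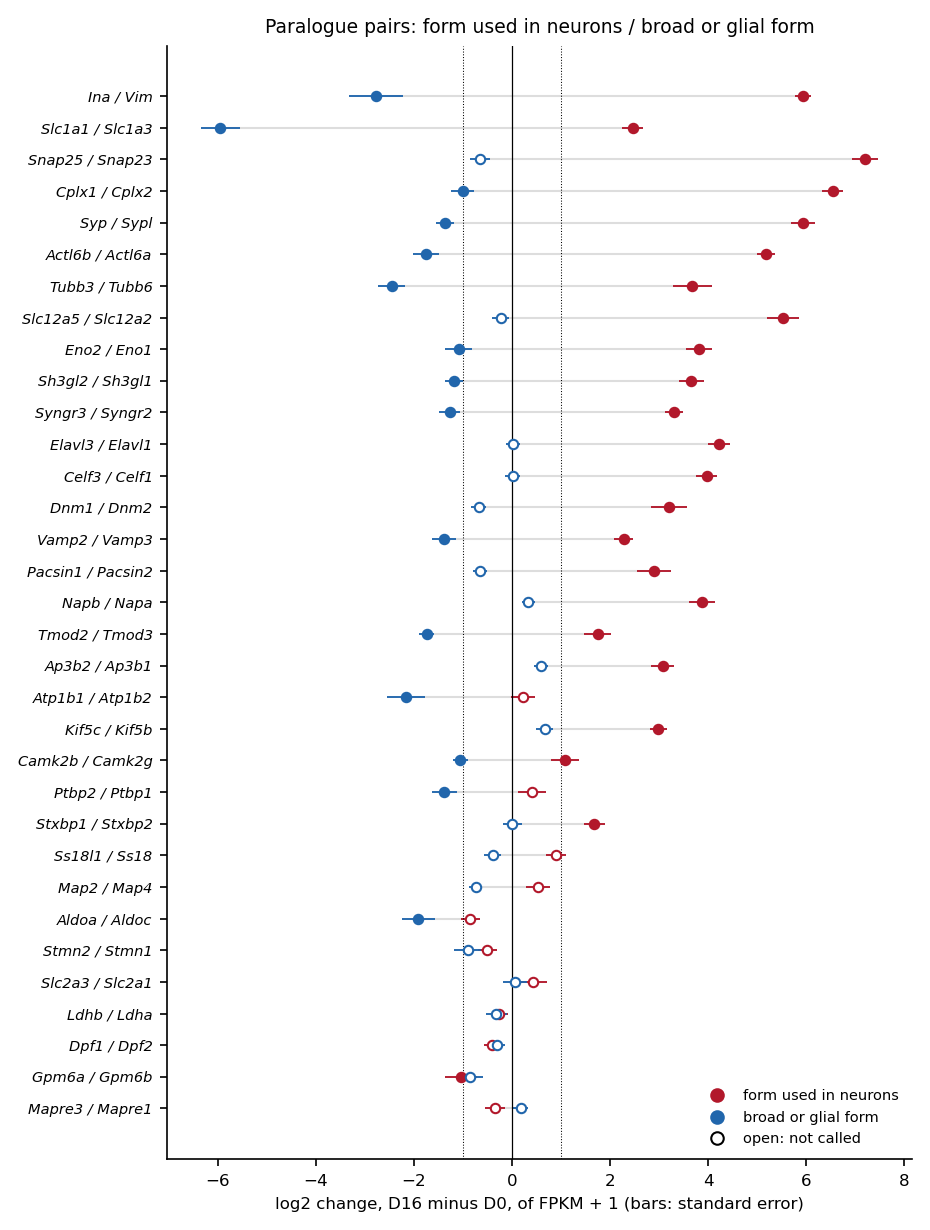
Log2 change (D16 minus D0, FPKM + 1) of both genes of 33 paralogue pairs, with the form used in neurons in red and the broad or glial form in blue; bars are standard errors, open circles were not called and dotted lines mark a change of 1. The 12 pairs with a filled red circle on the right and a filled blue circle on the left are those in which the neuronal form was higher and the broad form lower.

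Genes of peptide storage and secretion were mostly higher. Neuropeptides are cut from longer precursors by prohormone convertases inside dense-core granules, whose cores are formed by granins. Of the granin and processing genes, 16 of 18 members were called higher and 0 lower (median change 3.69). Of the 14 detected in both groups, 12 were higher and 0 lower. Chga, the granule core protein chromogranin A (chromosome 12, 102554941 to 102565027, coordinates of GRCm38 here and below), had 316, 149 and 241 FPKM at D16, against 3.92, 1.19 and 1.45 FPKM at D0, a log2 change of 6.25 ± 0.30 (adjusted p = 3.9e-10). Vgf, a granule protein of neurons and endocrine cells, had 3212, 1861 and 1833 FPKM at D16, against 56.9, 86.3 and 32.7 FPKM at D0, a log2 change of 5.33 ± 0.47 (adjusted p = 1.7e-07). All 3 D16 values of both genes stood above every D0 value. The convertase Pcsk2 had 25.6 ± 1.38 FPKM at D16, against 0.304 ± 0.15 FPKM at D0 (log2 change 4.35 ± 0.26, adjusted p = 2.9e-09). Ecel1, a membrane peptidase of neurons, had 143, 219 and 149.7 FPKM at D16, against 1.404, 0.184 and 0.94 FPKM at D0, a log2 change of 6.57 ± 0.33 (adjusted p = 4.8e-10). Ptprn, a granule membrane protein, had 197 ± 22.4 FPKM at D16, against 21.8 ± 7.58 FPKM at D0 (log2 change 3.18 ± 0.27, adjusted p = 9.9e-08). Cpe, the carboxypeptidase that trims the cut peptides, was abundant in both groups and not called (1488 ± 444 FPKM at D16, against 1044 ± 101 FPKM at D0, log2 change 0.47, 95% interval -0.13 to 1.07).

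Of the neuropeptide genes, 15 of 21 members were called higher and 2 lower (median change 3.28). Of the 9 detected in both groups, 5 were higher and 1 lower. Nts, neurotensin, had 68.96, 97.1 and 209 FPKM at D16, against a listed 0 in all 3 D0 libraries (adjusted p = 1.4e-08). Npy, neuropeptide Y, had 142, 67.8 and 286 FPKM at D16, against 3.78, 3.64 and 2.29 FPKM at D0, a log2 change of 5.08 ± 0.36 (adjusted p = 1.9e-08). Sst, somatostatin, had 31.1, 19.3 and 75.8 FPKM at D16, against 0.247, 0 and 0 FPKM at D0, a log2 change of 5.10 ± 0.56 (adjusted p = 1.5e-06). Groups did not overlap for any of these 3 peptides, and D16 replicate 3 was the highest for each of them. Tac1, the substance P precursor, had 35.6 ± 15.2 FPKM at D16, against 0.0741 ± 0.128 FPKM at D0 (log2 change 4.997 ± 0.38, adjusted p = 3.7e-08). Cck had 27.1 ± 11.9 FPKM at D16, against 1.48 ± 0.322 FPKM at D0 (log2 change 3.41 ± 0.32, adjusted p = 2.5e-07). Penk, the enkephalin precursor, had 18.9 ± 6.93 FPKM at D16, against 1.04 ± 0.794 FPKM at D0 (log2 change 3.28 ± 0.44, adjusted p = 1.1e-05). Gal, galanin, had 304, 59.5 and 319.9 FPKM at D16, against 1.54, 0.276 and 0 FPKM at D0, a log2 change of 6.93 ± 0.56 (adjusted p = 6.7e-08), and leaving out D16 replicate 2 moved its change to 7.72. In the other direction, Adm, adrenomedullin, had 2.08, 1.62 and 2.81 FPKM at D16, against 53.1, 47.6 and 24.9 FPKM at D0, a log2 change of -3.70 ± 0.31 (adjusted p = 9.6e-08).

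The promoters of 2 of these genes are shown because they hold the palindrome TGACGTCA, the cAMP response element that the factor CREB binds. Sequences are RefSeq's for GRCm38.p6, 250 bases upstream of the start, and the capitals mark the palindrome. For Sst the window is chr16:23890845-23891094 on the minus strand, with the first base of the element 48 bases before the start. For Chgb, a granin, it is chr2:132781392-132781641 on the plus strand, with the element 72 bases before the start.
Sst: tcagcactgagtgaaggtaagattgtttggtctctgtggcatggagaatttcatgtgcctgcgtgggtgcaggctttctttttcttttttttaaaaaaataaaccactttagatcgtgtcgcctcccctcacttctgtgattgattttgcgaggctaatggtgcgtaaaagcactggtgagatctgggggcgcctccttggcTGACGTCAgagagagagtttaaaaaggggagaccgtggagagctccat
Chgb: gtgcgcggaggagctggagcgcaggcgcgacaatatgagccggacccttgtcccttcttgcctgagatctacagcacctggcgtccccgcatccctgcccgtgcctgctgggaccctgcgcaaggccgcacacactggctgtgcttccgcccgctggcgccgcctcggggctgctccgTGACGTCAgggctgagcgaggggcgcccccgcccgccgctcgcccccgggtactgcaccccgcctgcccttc
Searched on both strands of the 250 upstream bases, the palindrome was found in 478 of 27025 genes of the promoter table (1.77%) and in 335 of 10529 members with a promoter there (3.18%). Of members called higher 3.92% held it, against 1.87% of those called lower and 3.39% of those not called. In the peptide list it was found in 3 of 19 (Sst, Cartpt and Ucn) and in the granin list in 3 of 16 (Chgb, Scg2 and Pcsk1). Among the immediate-early and cAMP-responsive genes it was found in 1 of 20, Dusp1, which was not called. A match describes letters and not a bound site, and its absence says only that these letters are not in the window. Sst was higher in all 3 D16 libraries as given above, and Chgb had 209.8, 77.3 and 151 FPKM at D16, against 13.01, 11.3 and 25.6 FPKM at D0, a log2 change of 3.03 ± 0.38 (adjusted p = 6.3e-06).

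Synaptic vesicles fuse when a SNARE complex zips together under the control of Munc18, Munc13, complexin and a calcium-sensing synaptotagmin. In the fusion list 17 of 22 members were called higher and 1 lower (median change 1.92). Of the 16 detected in both groups, 11 were higher and 1 lower. Cplx1, complexin 1 (chromosome 5, 108518554 to 108550027), had 115, 112 and 142 FPKM at D16, against 0.497, 0.342 and 0.166 FPKM at D0, a log2 change of 6.53 ± 0.21 (adjusted p = 1.4e-11). Unc13a, the priming factor Munc13-1, had 20.8, 30.4 and 22.8 FPKM at D16, against 1.997, 0.967 and 1.22 FPKM at D0, a log2 change of 3.43 ± 0.21 (adjusted p = 3.3e-09). Stx1a, a membrane SNARE, had 25.1, 13.5 and 25.7 FPKM at D16, against 2.36, 1.69 and 1.77 FPKM at D0, a log2 change of 2.88 ± 0.23 (adjusted p = 5.7e-08). All 3 averaged below 2 FPKM at D0, and no D0 value reached a D16 value. Rab3a, a vesicle GTPase, started from a higher level, at 163 ± 19.9 FPKM at D16, against 17.8 ± 1.96 FPKM at D0 (log2 change 3.12 ± 0.21, adjusted p = 8.1e-09). The lower member was Cplx2, at 10.4 ± 2.05 FPKM at D16, against 21.7 ± 2.897 FPKM at D0 (log2 change -1.01 ± 0.23), which fell short of a change of 1 without D16 replicate 2 or 3 or D0 replicate 1 (-0.99, -0.89 and -0.91).

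Among the synaptotagmins, 11 of 14 members were called higher and 0 lower (median change 2.32). Of the 9 detected in both groups, 6 were higher and 0 lower. Syt1, the fast calcium sensor, had 24.7, 35.1 and 39.04 FPKM at D16, against 0.686, 3.59 and 1.41 FPKM at D0, a log2 change of 3.65 ± 0.39 (adjusted p = 1.2e-06). Larger changes were seen in Syt4 (96.5 ± 11.4 FPKM at D16, against 0.446 ± 0.416 FPKM at D0, log2 change 6.11 ± 0.20, adjusted p = 1.4e-11) and Syt13 (87.4 ± 48.7 FPKM at D16, against 1.22 ± 0.513 FPKM at D0, log2 change 5.15 ± 0.63, adjusted p = 5e-06). Syt11, which does not bind calcium, was the most abundant member at D0 and was not called (113 ± 18.9 FPKM at D16, against 108 ± 50.4 FPKM at D0, log2 change 0.17, 95% interval -0.40 to 0.74). Of the synaptic vesicle proteins, 13 of 18 members were called higher and 2 lower (median change 2.40). Of the 15 detected in both groups, 10 were higher and 2 lower. The 2 lower members were the broad forms Sypl and Syngr2. Syn1, synapsin 1, had 66.7 ± 19.1 FPKM at D16, against 3.03 ± 0.347 FPKM at D0 (log2 change 4.04 ± 0.26, adjusted p = 5.4e-09). The proton pump that fills vesicles was already present at D0, with Atp6v0a1 at 170.5 ± 11.1 FPKM at D16, against 32.9 ± 2.52 FPKM at D0 (log2 change 2.34 ± 0.20, adjusted p = 1.2e-07). For active zone and endocytosis genes, 18 of 20 members were called higher and 0 lower (median change 2.20). Of the 13 detected in both groups, 11 were higher and 0 lower. Bsn, the active zone scaffold bassoon, had 12.04, 17.1 and 13 FPKM at D16, against 0.118, 0.0498 and 0.0611 FPKM at D0, a log2 change of 3.79 ± 0.30 (adjusted p = 4.8e-08).

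For GABA and glycine, 5 of 6 members were called higher and 0 lower (median change 2.50). Of the 3 detected in both groups, 2 were higher and 0 lower. Gad2, a GABA-synthesizing enzyme, had 9.35, 8.21 and 10.02 FPKM at D16, against 0.556, 0.0336 and 0.457 FPKM at D0, a log2 change of 2.94 ± 0.36 (adjusted p = 4.8e-06). Slc6a5, the glycine transporter of glycinergic neurons, had 6.02, 2.33 and 2.06 FPKM at D16, against a listed 0 in all 3 D0 libraries (adjusted p = 3.7e-06). For acetylcholine and monoamines, 19 genes were listed and only 7 were members. Those below the filter included the enzymes Chat, Th, Dbh and Tph2 and the transporters Slc5a7, Slc6a2 and Slc6a4. Of the 7 members, 5 were called higher and 1 lower (median change 1.54). Of the 4 detected in both groups, 2 were higher and 1 lower. Ache, acetylcholinesterase, had 42.9, 18.2 and 45.7 FPKM at D16, against 1.34, 0.71 and 1.48 FPKM at D0, a log2 change of 3.98 ± 0.41 (adjusted p = 7.1e-07). Slc6a3, the dopamine transporter, had 4.55 ± 1.69 FPKM at D16, against 0.0222 ± 0.0385 FPKM at D0 (log2 change 2.39 ± 0.21, adjusted p = 1.3e-07). The lower member was Maoa, a monoamine-degrading enzyme, with 12.7 ± 1.66 FPKM at D16, against 66.9 ± 11.3 FPKM at D0 (log2 change -2.31 ± 0.16, adjusted p = 1.4e-08). For glutamate, 3 of 7 members were called higher and 2 lower (median change 0.64). Of the 4 detected in both groups, 0 were higher and 2 lower. The 2 lower members were the uptake transporters Slc1a3 and Slc1a2.

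Of the GABA and glycine receptor genes, 14 of 17 members were called higher and 0 lower (median change 2.27). Of the 8 detected in both groups, 6 were higher and 0 lower. Gabbr1, a subunit of the metabotropic GABA-B receptor (chromosome 17, 37045966 to 37074305), had 200, 239 and 172 FPKM at D16, against 8.74, 5.19 and 10.4 FPKM at D0, a log2 change of 4.52 ± 0.25 (adjusted p = 1.3e-09). Gabra3, a subunit of the GABA-A channel, had 21.1, 11.2 and 20.02 FPKM at D16, against 0.253, 0.0866 and 0.0307 FPKM at D0, a log2 change of 3.99 ± 0.34 (adjusted p = 1.1e-07). Glra1, a glycine receptor subunit, had 3.403, 6.32 and 7.57 FPKM at D16, against a listed 0 in all 3 D0 libraries (adjusted p = 6.9e-07). No D0 value reached a D16 value in any of the 3. Gabbr2, the obligate partner of Gabbr1, reached 5.05 ± 1.199 FPKM at D16, against 0.242 ± 0.182 FPKM at D0 (log2 change 2.27 ± 0.27, adjusted p = 2.9e-06), far below the level of Gabbr1 at D16. Of the nicotinic, serotonin and ATP channel genes, 9 of 10 members were called higher and 0 lower (median change 1.85). Of the 3 detected in both groups, 3 were higher and 0 lower. Chrnb2, the main beta subunit of brain nicotinic receptors, had 36.4, 47.8 and 31.4 FPKM at D16, against 0.479, 0.399 and 0.603 FPKM at D0, a log2 change of 4.71 ± 0.17 (adjusted p = 2.4e-11). Chrna7 had 34.5, 33.99 and 37.7 FPKM at D16, against 3.096, 1.68 and 2.51 FPKM at D0, a log2 change of 3.43 ± 0.20 (adjusted p = 1.9e-09).

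For the ionotropic glutamate receptors, 7 of 14 members were called higher and 4 lower (median change 1.01). Of the 11 detected in both groups, 4 were higher and 4 lower. The NMDA subunit genes Grin2a, Grin2b, Grin2c and Grin2d were below the filter and not members. Beside the NMDA subunit Grin1, Cacng4, an AMPA receptor auxiliary subunit, was higher, with 10.7 ± 6.34 FPKM at D16, against 1.04 ± 0.313 FPKM at D0 (log2 change 2.39 ± 0.36, adjusted p = 3.5e-05). Grik3, a kainate subunit, was higher too, with 4.12 ± 0.697 FPKM at D16, against 0.278 ± 0.19 FPKM at D0 (log2 change 2.005 ± 0.23, adjusted p = 2.7e-06). Grik5, another kainate subunit, had 11.1, 11.8 and 9.24 FPKM at D16, against 39.5, 41.2 and 44.97 FPKM at D0, a log2 change of -1.88 ± 0.19 (adjusted p = 7.9e-07). The AMPA subunit Gria3 had 14.2, 7.805 and 6.72 FPKM at D16, against 25.03, 21.7 and 27.4 FPKM at D0, a log2 change of -1.34 ± 0.25 (adjusted p = 0.00027). Both were lower in every D16 library. In the postsynaptic density, 10 of 19 members were called higher and 2 lower (median change 1.06). Of the 14 detected in both groups, 5 were higher and 2 lower. Nrgn, neurogranin, had 15.96, 15.01 and 33.3 FPKM at D16, against 3.69, 0.117 and 1.45 FPKM at D0, a log2 change of 3.17 ± 0.67 (adjusted p = 0.00073). Baiap2, a scaffold of actin and receptors, was lower, with 11.2, 8.95 and 10.7 FPKM at D16, against 27.8, 24.9 and 27.96 FPKM at D0, a log2 change of -1.31 ± 0.23 (adjusted p = 0.00015). Dlg4, which encodes PSD-95, was not called (42.6 ± 7.77 FPKM at D16, against 33.6 ± 2.55 FPKM at D0, log2 change 0.32, 95% interval -0.10 to 0.74).

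Of 29 voltage-gated sodium and calcium channel genes listed, 19 were members. Those below the filter included the sodium channel genes Scn1a, Scn2a1, Scn3a and Scn9a. Of the 19 members, 11 were called higher and 0 lower (median change 1.13). Of the 12 detected in both groups, 5 were higher and 0 lower. Cacna2d3, a calcium channel auxiliary subunit, had 10.7, 12.4 and 15.9 FPKM at D16, against 0.485, 0.297 and 0.807 FPKM at D0, a log2 change of 3.19 ± 0.26 (adjusted p = 5.5e-08). Scn8a, the sodium channel of the axon initial segment, had 4.13, 4.36 and 4.69 FPKM at D16, against 0.0794, 0.0219 and 0.106 FPKM at D0, a log2 change of 2.33 ± 0.23 (adjusted p = 4.6e-07). Scn3b, a sodium channel beta subunit, had 29.01 ± 1.903 FPKM at D16, against 6.07 ± 1.59 FPKM at D0 (log2 change 2.11 ± 0.18, adjusted p = 1.2e-07). No member of this list was called lower at D16, and 8 members were not called.

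Of the potassium channel genes, 19 of 33 members were called higher and 8 lower (median change 1.36). Of the 18 detected in both groups, 5 were higher and 7 lower. Kcnk3, a background channel, had 7.304, 9.68 and 7.64 FPKM at D16, against 0.494, 0.271 and 0.18 FPKM at D0, a log2 change of 2.81 ± 0.29 (adjusted p = 8.1e-07). In the other direction, Kcnip1, an accessory subunit of A-type channels, had 0.304, 0.364 and 0.2 FPKM at D16, against 22.4, 29.2 and 15.2 FPKM at D0, a log2 change of -4.13 ± 0.21 (adjusted p = 5.5e-10). Kcnk2, a mechanosensitive background channel, had 1.75, 3.63 and 2.27 FPKM at D16, against 8.402, 20.6 and 26.3 FPKM at D0, a log2 change of -2.35 ± 0.33 (adjusted p = 1.9e-05). Kcnd3, an A-type channel subunit, was lower too (3.08 ± 0.798 FPKM at D16, against 18.4 ± 5.01 FPKM at D0, log2 change -2.24 ± 0.21, adjusted p = 2.5e-07). Among the pump and chloride genes, 4 of 17 members were called higher and 6 lower (median change -0.11). Of the 13 detected in both groups, 1 was higher and 5 lower. Fxyd1, the pump regulator phospholemman, had 4.49, 2.41 and 3.33 FPKM at D16, against 98.5, 154 and 192 FPKM at D0, a log2 change of -5.05 ± 0.30 (adjusted p = 3.1e-09). Fxyd5, another member of its family, had 51.1, 31.3 and 56.8 FPKM at D16, against 11.7, 3.23 and 2.49 FPKM at D0, a log2 change of 3.01 ± 0.39 (adjusted p = 7.6e-06).

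Of the glial factors, 1 of 21 members was called higher and 15 lower (median change -1.97). Of the 20 detected in both groups, 1 was higher and 14 lower. Sox2, a factor of neural progenitors and astrocytes, had 44.2, 15.98 and 19.5 FPKM at D16, against 169, 138 and 183 FPKM at D0, a log2 change of -2.71 ± 0.29 (adjusted p = 1.4e-06). Sox9, the astrocyte lineage factor, had 8.87, 5.77 and 4.34 FPKM at D16, against 27.2, 25.5 and 42.7 FPKM at D0, a log2 change of -2.17 ± 0.28 (adjusted p = 7.6e-06). Nfix had 16.1, 16.7 and 9.198 FPKM at D16, against 66.8, 75.8 and 82.2 FPKM at D0, a log2 change of -2.38 ± 0.24 (adjusted p = 7.3e-07). Each of the 3 was lower in every D16 library, and each was still above 4 FPKM there. Id3, an inhibitor of bHLH factors, had 156 ± 75.7 FPKM at D16, against 664 ± 127 FPKM at D0 (log2 change -2.22 ± 0.64, adjusted p = 0.0069). The member called higher was Zic1, a zinc-finger factor of dorsal neural tube, with 22.1, 25.5 and 27.1 FPKM at D16, against 7.54, 4.53 and 4.17 FPKM at D0, a log2 change of 2.04 ± 0.30 (adjusted p = 2.5e-05).

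Of the proneural and neuronal bHLH factors, 3 of 8 members were called higher and 3 lower (median change 0.30). Of the 3 detected in both groups, 0 were higher and 1 lower. Neurog2, a proneural factor of cortex and sensory ganglia, had 5.19, 3.36 and 3.99 FPKM at D16, against 0.0446, 0.0615 and 0.109 FPKM at D0, a log2 change of 2.26 ± 0.25 (adjusted p = 1.5e-06). Neurod2 had 1.96, 2.202 and 2.43 FPKM at D16, against a listed 0 in all 3 D0 libraries (adjusted p = 9.5e-07). Atoh8 had 1.33, 0.907 and 1.22 FPKM at D16, against 124, 118 and 123 FPKM at D0, a log2 change of -5.84 ± 0.31 (adjusted p = 8.8e-10). Of the neuronal zinc-finger, Sox and Myt factors, 12 of 20 members were called higher and 0 lower (median change 1.77). Of the 12 detected in both groups, 5 were higher and 0 lower. Scrt1, a repressor that accompanies neuronal commitment (chromosome 15, 76516203 to 76522129), had 71.96, 94.7 and 75.8 FPKM at D16, against 0, 0.032 and 0 FPKM at D0, a log2 change of 6.33 ± 0.24 (adjusted p = 3.2e-11). Sox11, a factor of newborn neurons, had 44.1, 67.7 and 50.01 FPKM at D16, against 8.44, 4.66 and 6.38 FPKM at D0, a log2 change of 2.88 ± 0.22 (adjusted p = 4.1e-08). Insm1, a factor of neuroendocrine differentiation, had 14.6, 10.7 and 6.198 FPKM at D16, against 1.65, 0.849 and 3.86 FPKM at D0, a log2 change of 1.93 ± 0.38 (adjusted p = 0.00042).

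Of the factors of sensory, autonomic and motor neurons, 13 of 15 members were called higher and 1 lower (median change 2.06). Of the 3 detected in both groups, 1 was higher and 1 lower. Hand2, of sympathetic neurons, had 8.96, 8.14 and 18.8 FPKM at D16, against 0.221, 0.274 and 0.324 FPKM at D0, a log2 change of 3.26 ± 0.27 (adjusted p = 6.9e-08). Pou4f1, of sensory neurons, had 4.63, 6.698 and 4.91 FPKM at D16, against 0.0248, 0.017 and 0.0301 FPKM at D0, a log2 change of 2.63 ± 0.16 (adjusted p = 2.7e-09). Isl2, of motor neurons, had 7.898, 8.76 and 10.3 FPKM at D16, against 0.11, 0.0378 and 0 FPKM at D0, a log2 change of 3.24 ± 0.16 (adjusted p = 4.3e-10). Lmx1b, of serotonergic neurons, had 6.29, 10.6 and 6.21 FPKM at D16, against 0.361, 0 and 0 FPKM at D0, a log2 change of 2.94 ± 0.24 (adjusted p = 8.6e-08). All 4 were higher in each of the same 3 libraries. Nkx2-2, of ventral neural tube, was the lower member, with 1.6, 0.62 and 0.456 FPKM at D16, against 7.92, 3.59 and 4.85 FPKM at D0, a log2 change of -1.76 ± 0.28 (adjusted p = 6e-05). Of the forebrain and interneuron factors, 8 of 20 members were called higher and 6 lower (median change 0.26). Of the 14 detected in both groups, 4 were higher and 5 lower. Npas1 had 13.5, 16.5 and 19.2 FPKM at D16, against 1.05, 3.71 and 1.52 FPKM at D0, a log2 change of 2.58 ± 0.28 (adjusted p = 1.4e-06), and Lhx6, of cortical interneurons, had 3.77, 6.23 and 4.86 FPKM at D16, against 0.0299, 0.205 and 0.0342 FPKM at D0, a log2 change of 2.43 ± 0.19 (adjusted p = 5.1e-08).

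Hox genes mark position along the body axis behind the midbrain and are silent in the forebrain. Of 39 Hox genes listed, 25 were members, and all 25 reached 1 FPKM in D16 libraries only, so their direction follows from how members were chosen. Hoxb7 (chromosome 11, 96285604 to 96290163) had 32.1, 33.6 and 74.6 FPKM at D16, against a listed 0 in all 3 D0 libraries (adjusted p = 1.6e-09). Hoxc10 had 11.01, 22.3 and 22.4 FPKM at D16, against a listed 0 in all 3 D0 libraries (adjusted p = 1.1e-09). Hoxb13, among the most posterior genes, had 12.8, 12.3 and 16.6 FPKM at D16, against a listed 0 in all 3 D0 libraries (adjusted p = 7.1e-11). Genes of all 4 clusters were present. Hoxa10 had 6.75 ± 3.15 FPKM at D16, against a listed 0 in all 3 D0 libraries, Hoxc13 had 10.6 ± 1.71 FPKM at D16, against 0.115 ± 0.0452 FPKM at D0, and Hoxd13 had 6.08 ± 2.98 FPKM at D16, against 0.0451 ± 0.0781 FPKM at D0. Among regulators of other germ layers, 7 of 12 members were called higher and 2 lower (median change 1.42). Of the 6 detected in both groups, 1 was higher and 2 lower. Gata4, of heart and endoderm, had 11.2, 11 and 11.7 FPKM at D16, against 0.112, 0.0192 and 0.034 FPKM at D0, a log2 change of 3.54 ± 0.13 (adjusted p = 2.6e-11). Gata6 had 5.601, 5.48 and 4.604 FPKM at D16, against 0.0597, 0.0614 and 0.109 FPKM at D0, a log2 change of 2.53 ± 0.18 (adjusted p = 1.7e-08), while the mesenchymal factor Prrx1 had 3.17, 2.52 and 3.44 FPKM at D16, against 33.4, 16.4 and 23.9 FPKM at D0, a log2 change of -2.61 ± 0.22 (adjusted p = 1.1e-07).

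Of the RNA-binding proteins that shape neuronal transcripts, 13 of 27 members were called higher and 5 lower (median change 0.96). Of the 20 detected in both groups, 6 were higher and 5 lower. Elavl3, a neuronal stabilizer of AU-rich messages, had 72.6, 71.9 and 59.1 FPKM at D16, against 3.37, 1.27 and 3.98 FPKM at D0, a log2 change of 4.22 ± 0.23 (adjusted p = 9.7e-10), while the broad Elavl1 was not called (log2 change 0.01, 95% interval -0.28 to 0.31). Celf6 had 22.7, 20.04 and 17.8 FPKM at D16, against 0, 0.048 and 0.0426 FPKM at D0, a log2 change of 4.36 ± 0.16 (adjusted p = 2.6e-11). Srrm4, which promotes microexon inclusion, had 11.1 ± 2.05 FPKM at D16, against 1.16 ± 0.423 FPKM at D0 (log2 change 2.49 ± 0.26, adjusted p = 8.3e-07). Its relative Srrm3 had 10.3 ± 1.52 FPKM at D16, against 0.0575 ± 0.0509 FPKM at D0 (log2 change 3.41 ± 0.16, adjusted p = 2.4e-10). The 5 lower members included Qk, a glial splicing factor, with 26.9, 17.1 and 17.4 FPKM at D16, against 109.5, 79.5 and 134 FPKM at D0, a log2 change of -2.34 ± 0.28 (adjusted p = 3.8e-06). The muscleblind factor Mbnl1 was lower as well (log2 change -1.45 ± 0.15, adjusted p = 8.7e-07), and so was Mbnl2 (log2 change -1.44 ± 0.21, adjusted p = 2.5e-05). Of the BAF subunits, 2 of 19 members were called higher and 1 lower (median change -0.24). Of the 17 detected in both groups, 0 were higher and 1 lower. The 2 higher subunits, Actl6b and Dpf3, reached 1 FPKM in D16 libraries only, Dpf3 with 2.75 ± 0.741 FPKM at D16, against 0.49 ± 0.131 FPKM at D0 (log2 change 1.32 ± 0.22, adjusted p = 0.0001).

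Of tubulins and microtubule-associated proteins, 7 of 26 members were called higher and 4 lower (median change -0.30). Of the 26 detected in both groups, 7 were higher and 4 lower. Stmn4, a stathmin of neurons, had 202, 149.8 and 225 FPKM at D16, against 0.445, 0.434 and 1.32 FPKM at D0, a log2 change of 6.82 ± 0.27 (adjusted p = 4.2e-11). Stmn3 had 233 ± 99.7 FPKM at D16, against 9.19 ± 1.702 FPKM at D0 (log2 change 4.43 ± 0.27, adjusted p = 4e-09). Mapt, tau, had 16.1, 13.1 and 8.15 FPKM at D16, against 0.521, 0.581 and 1.43 FPKM at D0, a log2 change of 2.85 ± 0.29 (adjusted p = 7.6e-07). Tuba1a, an alpha-tubulin of young neurons, had 400.2, 525 and 233 FPKM at D16, against 890.2, 1347 and 1000 FPKM at D0, a log2 change of -1.54 ± 0.31 (adjusted p = 0.00049). Tubb4b, of dividing and ciliated cells, had 118, 93.8 and 92.1 FPKM at D16, against 408, 614 and 452 FPKM at D0, a log2 change of -2.26 ± 0.20 (adjusted p = 1.8e-07). Among intermediate filaments, 5 of 13 members were called higher and 5 lower (median change -0.35). Of the 11 detected in both groups, 3 were higher and 5 lower. Nefh, the heavy neurofilament, had 15.8 ± 3.13 FPKM at D16, against 0.0289 ± 0.0369 FPKM at D0 (log2 change 4.01 ± 0.23, adjusted p = 1.7e-09), and Nefm, the medium one, had 37.3 ± 17.1 FPKM at D16, against 3.48 ± 1.54 FPKM at D0 (log2 change 3.07 ± 0.33, adjusted p = 1.4e-06). Nes, the nestin of progenitors and reactive astrocytes, had 42.5, 31.1 and 18.9 FPKM at D16, against 189.8, 219.7 and 189 FPKM at D0, a log2 change of -2.72 ± 0.30 (adjusted p = 1.4e-06). No D16 value of Nes reached a D0 value.

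Of the growth cone genes, 7 of 19 members were called higher and 4 lower (median change 0.73). Of the 19 detected in both groups, 7 were higher and 4 lower. Without D16 replicate 1, 4 members were called higher. Crmp1, a semaphorin signal mediator, had 105, 109.9 and 89.6 FPKM at D16, against 3.57, 0.577 and 2.44 FPKM at D0, a log2 change of 5.13 ± 0.28 (adjusted p = 1.1e-09). Dpysl3, of the same family as Crmp1, had 27.1, 17.1 and 19.7 FPKM at D16, against 94.2, 54.5 and 98.4 FPKM at D0, a log2 change of -1.88 ± 0.26 (adjusted p = 1.5e-05). Fscn1, the actin bundler of filopodia, had 91.4, 90.7 and 95.6 FPKM at D16, against 413, 1009.6 and 542 FPKM at D0, a log2 change of -2.71 ± 0.24 (adjusted p = 1.9e-07). Of the transport motors, 10 of 20 members were called higher and 1 lower (median change 0.96). Of the 18 detected in both groups, 9 were higher and 1 lower. Kif5a, the neuronal kinesin-1 heavy chain, had 79.7, 81.4 and 64.8 FPKM at D16, against 1.44, 0.57 and 1.49 FPKM at D0, a log2 change of 5.16 ± 0.29 (adjusted p = 1.4e-09). Its scaffold Mapk8ip2 had 45.5 ± 3.37 FPKM at D16, against 3.65 ± 1.85 FPKM at D0 (log2 change 3.41 ± 0.24, adjusted p = 1.7e-08). Dynll1, a light chain shared by dynein and myosin V, was the lower member (56.7 ± 3.44 FPKM at D16, against 162 ± 41.6 FPKM at D0, log2 change -1.47 ± 0.20, adjusted p = 1.4e-05).

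Smooth muscle and activated stromal cells switch on a set of contractile genes, among others through serum response factor and its DNA element, the CArG box. Of the contractile genes, 0 of 18 members were called higher and 17 lower (median change -2.85). Of the 16 detected in both groups, 0 were higher and 15 lower. Flna, the actin cross-linker filamin A, had 17.01, 7.49 and 9.32 FPKM at D16, against 256, 371 and 283 FPKM at D0, a log2 change of -4.69 ± 0.32 (adjusted p = 9.8e-09). Cald1, the actomyosin regulator caldesmon, had 14.4, 9.51 and 9.69 FPKM at D16, against 293, 601 and 276 FPKM at D0, a log2 change of -4.93 ± 0.44 (adjusted p = 1.9e-07). Lmod1, a smooth muscle leiomodin, had 0.0236, 0.0861 and 0.285 FPKM at D16, against 12.1, 45.2 and 23.7 FPKM at D0, a log2 change of -4.45 ± 0.32 (adjusted p = 1.7e-08). All 3 were highest in D0 replicate 2, the library with the highest mural marker sum, and no D16 value reached a D0 value. Leaving out each library in turn gave 16 or 17 lower members, and without D0 replicate 2 the change of Acta2 was -9.88 and that of Cnn1 -5.82, against -10.52 ± 0.95 and -6.41 ± 0.50 with it. Srf itself had 6.65, 6.51 and 6.08 FPKM at D16, against 20.5, 33.5 and 29.2 FPKM at D0, a log2 change of -1.93 ± 0.18 (adjusted p = 3.1e-07), while its coactivator Mkl1 was not called (11.3 ± 2.19 FPKM at D16, against 12.2 ± 0.998 FPKM at D0, log2 change -0.11, 95% interval -0.56 to 0.33). The cytoplasmic actin Actb was lower too, with 639 ± 267 FPKM at D16, against 2594 ± 830 FPKM at D0 (log2 change -2.05 ± 0.29, adjusted p = 1.8e-05), and so was Actg1, with 1507 ± 407 FPKM at D16, against 3743 ± 1256 FPKM at D0 (log2 change -1.29 ± 0.28, adjusted p = 0.001).

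The upstream sequences of 2 contractile genes are shown because each holds a CArG box, in capitals. Myl9, chr2:156775214-156775463, plus strand, encodes the regulatory myosin light chain and has the box 161 bases before the start used for its window. The annotated Myl9 gene begins earlier, at 156775408, so the end of this window lies inside the gene. Cnn2, chr10:79988350-79988599, plus strand, encodes a calponin and has the box 56 bases before its start (RefSeq, GRCm38.p6).
Myl9: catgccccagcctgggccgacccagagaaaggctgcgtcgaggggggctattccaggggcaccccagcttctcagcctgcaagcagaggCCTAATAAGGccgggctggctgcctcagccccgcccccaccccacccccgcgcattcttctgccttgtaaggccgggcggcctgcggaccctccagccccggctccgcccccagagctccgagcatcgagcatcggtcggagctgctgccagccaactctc
Cnn2: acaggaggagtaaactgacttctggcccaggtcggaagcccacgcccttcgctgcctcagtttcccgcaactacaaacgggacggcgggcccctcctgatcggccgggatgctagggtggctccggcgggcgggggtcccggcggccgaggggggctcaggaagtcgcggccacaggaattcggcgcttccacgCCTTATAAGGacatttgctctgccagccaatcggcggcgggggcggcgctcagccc
Searched on both strands in the same windows, the CArG box was present in 439 of 27025 genes of the table (1.62%), 147 of 10529 members (1.40%), 2.11% of members called lower and 1.04% of members called higher. In the contractile list it was found in 4 of 17 genes with a promoter in the table, namely Myl9, Cnn2, Vcl and Srf. Cnn2 had 29.03, 48.01 and 38.2 FPKM at D16, against 483, 940.3 and 556 FPKM at D0, a log2 change of -4.03 ± 0.58 (adjusted p = 2.5e-05). Myl9 had 1.99, 2.69 and 4.398 FPKM at D16, against 426, 1307 and 539.8 FPKM at D0, a difference of -7.42 ± 0.64 on the log2 scale.

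Cells pull on the matrix through integrins, and the tension is read by the coactivators YAP and TAZ. Of these genes, 1 of 26 members was called higher and 21 lower (median change -1.89). Of the 25 detected in both groups, 0 were higher and 21 lower. Cyr61, a secreted YAP target (chromosome 3, 145646971 to 145649985), had 4.56, 1.93 and 3.89 FPKM at D16, against 500.3, 837 and 665 FPKM at D0, a log2 change of -7.25 ± 0.91 (adjusted p = 5.9e-06). Ctgf, another, had 4.34, 1.44 and 0.544 FPKM at D16, against 125, 346 and 225 FPKM at D0, a log2 change of -6.30 ± 0.81 (adjusted p = 8.2e-06). Yap1 itself had 7.27, 4.96 and 6.85 FPKM at D16, against 51.4, 48.9 and 44.8 FPKM at D0, a log2 change of -2.76 ± 0.25 (adjusted p = 2.2e-07). Wwtr1, which encodes TAZ, had 22.1, 14.5 and 13.7 FPKM at D16, against 70.8, 62.6 and 61.3 FPKM at D0, a log2 change of -1.92 ± 0.34 (adjusted p = 0.00016). Every D16 value of these genes was below every D0 value. Itgb1, the common integrin beta chain, kept a high level, with 229.6 ± 20.5 FPKM at D16, against 605 ± 110.4 FPKM at D0 (log2 change -1.38 ± 0.21, adjusted p = 3.8e-05). Itgb3 was the member called higher, with 2.76, 2.44 and 3.46 FPKM at D16, against 0.461, 0.424 and 0.27 FPKM at D0, a log2 change of 1.48 ± 0.22 (adjusted p = 2.9e-05). Cav1, the caveolae coat protein, also fell, with 2.32, 1.78 and 1.56 FPKM at D16, against 265, 266 and 189 FPKM at D0, a log2 change of -6.37 ± 0.33 (adjusted p = 8.2e-10).

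Of the collagens, 2 of 20 members were called higher and 15 lower (median change -2.24). Of the 16 detected in both groups, 1 was higher and 12 lower. Col4a1, of basement membranes, had 3.77, 1.01 and 1.52 FPKM at D16, against 53.4, 97.1 and 50.5 FPKM at D0, a log2 change of -4.49 ± 0.34 (adjusted p = 2.8e-08). Col1a1, of fibrils, had 3.69, 3.55 and 5.85 FPKM at D16, against 65.7, 202 and 133 FPKM at D0, a log2 change of -4.53 ± 0.44 (adjusted p = 4.4e-07). Col8a1 had 0.305, 0.31 and 0.552 FPKM at D16, against 70.1, 103 and 104 FPKM at D0, a log2 change of -6.05 ± 0.32 (adjusted p = 9.4e-10). Col23a1, a transmembrane collagen, was called higher, with 20.4, 15.5 and 18.8 FPKM at D16, against 1.803, 0.7 and 2.48 FPKM at D0, a log2 change of 2.91 ± 0.32 (adjusted p = 1.8e-06). Of the glycoproteins and proteoglycans, 5 of 39 members were called higher and 23 lower (median change -1.47). Of the 29 detected in both groups, 3 were higher and 15 lower. Fn1, fibronectin, had 21.5, 26.02 and 17.5 FPKM at D16, against 419, 269 and 300.1 FPKM at D0, a log2 change of -3.86 ± 0.40 (adjusted p = 8.3e-07). Prelp, a small leucine-rich proteoglycan, had 0.13, 0.166 and 0.104 FPKM at D16, against 122, 178 and 82.2 FPKM at D0, a log2 change of -6.75 ± 0.23 (adjusted p = 1.4e-11). Acan, the aggrecan of perineuronal nets, went the other way, with 3.79 ± 1.75 FPKM at D16, against 0.0356 ± 0.032 FPKM at D0 (log2 change 2.13 ± 0.35, adjusted p = 8.4e-05), as did Gpc3 (15.02 ± 4.15 FPKM at D16, against 1.69 ± 0.46 FPKM at D0, log2 change 2.55 ± 0.30, adjusted p = 3.2e-06).

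Of the proteases and inhibitors, 1 of 31 members was called higher and 21 lower (median change -1.74). Of the 27 detected in both groups, 0 were higher and 18 lower. Loxl1, a collagen cross-linking enzyme, had 0.961, 1.21 and 1.55 FPKM at D16, against 48.8, 113 and 70.3 FPKM at D0, a log2 change of -5.05 ± 0.39 (adjusted p = 3.5e-08). Timp3, a metalloprotease inhibitor, had 43.7, 15.1 and 23.9 FPKM at D16, against 99.02, 212 and 273 FPKM at D0, a log2 change of -2.78 ± 0.43 (adjusted p = 4.7e-05). Mmp24, a membrane metalloprotease of neurons, was higher, with 26.99, 28.5 and 23.2 FPKM at D16, against 0.369, 0.208 and 0.211 FPKM at D0, a log2 change of 4.43 ± 0.16 (adjusted p = 2.3e-11). Timp1 had 563, 26.7 and 275 FPKM at D16, against 494, 119 and 119 FPKM at D0. Its D16 libraries spanned a wider range than its D0 libraries, so it overlapped and was not called. Igfbp2, a binding protein and the second most abundant D0 gene (chromosome 1, 72824480 to 72852474), had 167, 119 and 178 FPKM at D16, against 5261, 13172 and 5540.4 FPKM at D0, a log2 change of -5.57 ± 0.57 (adjusted p = 8e-07). Igfbp3 had 30.5, 24.97 and 41.6 FPKM at D16, against 1371, 522 and 1213 FPKM at D0, a log2 change of -4.87 ± 0.41 (adjusted p = 9.1e-08). Igf2r, the receptor that takes IGF2 to lysosomes, had 99.8, 159 and 113 FPKM at D16, against 17.8, 10.7 and 14.5 FPKM at D0, a log2 change of 3.03 ± 0.35 (adjusted p = 3.1e-06). The groups did not overlap for any of these 3 genes. Over the IGF and binding protein list, 2 of 10 members were called higher and 6 lower (median change -1.19). Of the 7 detected in both groups, 2 were higher and 4 lower.

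Of the TGF-beta and BMP genes, 6 of 29 members were called higher and 11 lower (median change -0.47). Of the 28 detected in both groups, 6 were higher and 10 lower. Tgfb1 had 100.4, 63.4 and 127 FPKM at D16, against 17.4, 6.99 and 10.2 FPKM at D0, a log2 change of 2.999 ± 0.49 (adjusted p = 8.1e-05). Tgfb3 had 8.85, 3.29 and 3.54 FPKM at D16, against 23.6, 73.4 and 42.8 FPKM at D0, a log2 change of -2.90 ± 0.43 (adjusted p = 2.9e-05). Nog, the BMP antagonist noggin, had 1.56, 1.95 and 1.402 FPKM at D16, against 22.2, 69.7 and 64.6 FPKM at D0, a log2 change of -4.18 ± 0.33 (adjusted p = 5.1e-08), and the feedback inhibitors Smad6 and Smad7 were lower (log2 change -2.46 ± 0.30, adjusted p = 4e-06, and log2 change -1.53 ± 0.24, adjusted p = 6.2e-05). Bmp7 was higher (11.2 ± 1.88 FPKM at D16, against 1.74 ± 0.284 FPKM at D0, log2 change 2.15 ± 0.22, adjusted p = 6.2e-07).

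Of 30 mitosis members, 30 were called lower and 0 higher (median change -4.53), but 21 of them reached 1 FPKM in D0 libraries only, which left 9 detected in both groups, all lower. Ube2c, the ubiquitin-conjugating enzyme of mitotic exit, had 0.767, 1.89 and 1.39 FPKM at D16, against 163, 164 and 117 FPKM at D0, a log2 change of -6.002 ± 0.22 (adjusted p = 2.3e-11). Cdk1, the mitotic kinase, had 0.468, 0.762 and 2.37 FPKM at D16, against 56.3, 54.1 and 43.97 FPKM at D0, a log2 change of -4.66 ± 0.27 (adjusted p = 2e-09). Aurkb, a kinase of chromosome segregation, had a listed 0 in all 3 D16 libraries, against 25.7, 21.7 and 17.9 FPKM at D0 (adjusted p = 1.3e-08). No D16 value reached a D0 value in any of the 3. For DNA replication, 0 of 30 members were called higher and 25 lower (median change -1.86). Of the 22 detected in both groups, 0 were higher and 17 lower. Tk1, thymidine kinase, had 0.545, 0.0735 and 0.217 FPKM at D16, against 49.5, 57.7 and 43.95 FPKM at D0, a log2 change of -5.34 ± 0.31 (adjusted p = 2.2e-09). Rrm2, a subunit of ribonucleotide reductase, had 6.82, 6.43 and 8.86 FPKM at D16, against 189, 153 and 115 FPKM at D0, a log2 change of -4.17 ± 0.20 (adjusted p = 3.4e-10). Pcna had 158, 173 and 588 FPKM at D16, against 242, 221 and 194 FPKM at D0, with D16 replicate 3 standing apart, and was not called (log2 change 0.21, 95% interval -0.68 to 1.10).

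The promoters of Ube2c and Cdk1 are shown with the letters TTTGAA or, where they lie on the other strand, their reverse complement TTCAAA in capitals. These letters are the core of the cell cycle genes homology region through which mitotic genes are repressed in resting cells. Ube2c is chr2:164769679-164769928, plus strand, with the reverse complement 29 bases before the start, and Cdk1 is chr10:69352913-69353162, minus strand, with TTTGAA 71 and 15 bases before the start (RefSeq, GRCm38.p6).
Ube2c: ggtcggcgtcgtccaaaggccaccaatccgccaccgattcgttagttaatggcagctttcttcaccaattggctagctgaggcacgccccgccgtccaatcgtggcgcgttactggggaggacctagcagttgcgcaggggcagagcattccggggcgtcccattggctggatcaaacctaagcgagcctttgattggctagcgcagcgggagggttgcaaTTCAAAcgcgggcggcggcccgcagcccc
Cdk1: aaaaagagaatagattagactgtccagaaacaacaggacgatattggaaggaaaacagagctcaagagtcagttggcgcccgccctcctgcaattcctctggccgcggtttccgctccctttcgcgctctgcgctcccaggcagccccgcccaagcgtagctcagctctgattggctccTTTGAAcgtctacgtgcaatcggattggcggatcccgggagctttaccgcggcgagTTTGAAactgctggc
Over both strands of the 250 upstream bases these short letters were common, in 4934 of 27025 genes of the table (18.3%), in 12.4% of members, in 15.5% of members called lower and in 11.2% of members called higher. Of 28 mitosis genes with a promoter in the table, 10 held them (35.7%).

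Replication-dependent histone messages lack a poly(A) tail. Of 25 such genes listed, only 11 were members, and 0 of these were called, with a median change of 0.01. The others fell below the filter, so the group as a whole cannot be set against the other S-phase genes. The labels do not say whether libraries were made from polyadenylated RNA. Hist1h2bc had 132 ± 14.6 FPKM at D16, against 79.5 ± 19.98 FPKM at D0. The histone genes of a cluster are near-identical, so their shares are uncertain.

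Ccnd1, a D cyclin that drives entry into the cell cycle (chromosome 7, 144929931 to 144939831), had 50.5, 55.3 and 66.4 FPKM at D16, against 1546, 1304 and 1194 FPKM at D0, a log2 change of -4.53 ± 0.19 (adjusted p = 7.7e-11). Ccnd2 had 111, 82.3 and 86.8 FPKM at D16, against 564, 488 and 490.4 FPKM at D0, a log2 change of -2.46 ± 0.20 (adjusted p = 6.2e-08). Ccnd3 had 22.9 ± 3.62 FPKM at D16, against 101 ± 29.1 FPKM at D0 (log2 change -2.06 ± 0.27, adjusted p = 9.4e-06). Cdkn2a, which encodes the cell cycle inhibitors INK4A and ARF (chromosome 4, 89274473 to 89294619), had 434, 176 and 433 FPKM at D16, against 51.4, 40.2 and 37.1 FPKM at D0, a log2 change of 2.89 ± 0.30 (adjusted p = 1e-06). All 3 D16 values of Cdkn2a were above, and all 3 of each D cyclin below, the D0 values. Among inhibitors and D cyclins, 2 of 21 members were called higher and 9 lower (median change -0.88). Of the 21 detected in both groups, 2 were higher and 9 lower. Gadd45a, a damage-response gene, was the other gain (96.5 ± 33.3 FPKM at D16, against 35.2 ± 13.6 FPKM at D0, log2 change 1.43 ± 0.34, adjusted p = 0.002). Cdkn1a, an inhibitor induced by p53, was high in both groups and not called (369 ± 84.9 FPKM at D16, against 275 ± 57.6 FPKM at D0, log2 change 0.41, 95% interval 0.01 to 0.82).

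Of the MHC class I and interferon genes, 5 of 24 members were called higher and 8 lower (median change -0.71). Of the 20 detected in both groups, 5 were higher and 4 lower. H2-D1, a classical MHC class I heavy chain (chromosome 17, 35263094 to 35267497), had 577, 846 and 1145 FPKM at D16, against 34.8, 41.6 and 49.5 FPKM at D0, a log2 change of 4.28 ± 0.30 (adjusted p = 1.5e-08). H2-K1 had 71.7, 123 and 122 FPKM at D16, against 8.28, 13.9 and 19.4 FPKM at D0, a log2 change of 2.87 ± 0.41 (adjusted p = 2.2e-05). B2m, the light chain that pairs with them, had 1529, 895 and 1554 FPKM at D16, against 406, 369.6 and 320.5 FPKM at D0, a log2 change of 1.82 ± 0.31 (adjusted p = 0.00012). Heavy and light chains were higher in every D16 library, but class I genes are close copies of each other and the share of each is uncertain. Ifit3, an interferon-induced gene, had 0.2, 0.137 and 0.067 FPKM at D16, against 6.02, 14.9 and 21.8 FPKM at D0, a log2 change of -3.59 ± 0.31 (adjusted p = 1.3e-07). Ifitm3 had 3.06, 0.61 and 3.93 FPKM at D16, against 468, 606 and 547 FPKM at D0, a log2 change of -7.40 ± 0.55 (adjusted p = 2.6e-08). Of CD40, NF-kB and cytokine genes, 4 of 31 members were called higher and 11 lower (median change -0.80). Of the 28 detected in both groups, 3 were higher and 9 lower. Without D0 replicate 2, 2 members were called higher. The largest gain was in Cd40, a receptor of the tumour necrosis factor receptor family, with 145, 293 and 127 FPKM at D16, against 0.319, 0.27 and 0.301 FPKM at D0, a log2 change of 7.09 ± 0.47 (adjusted p = 7.6e-09), where no D0 value reached a D16 value. Clcf1, a cytokine of the IL-6 family, had 3.84, 1.09 and 1.89 FPKM at D16, against 179, 146 and 108 FPKM at D0, a log2 change of -5.53 ± 0.45 (adjusted p = 6.7e-08). Csf1, the growth factor of microglia, had 12.03, 6.15 and 6.07 FPKM at D16, against 106, 302 and 166 FPKM at D0, a log2 change of -4.34 ± 0.59 (adjusted p = 1.3e-05). Vcam1 had 1.16, 0.454 and 0.779 FPKM at D16, against 134, 65.7 and 105 FPKM at D0, a log2 change of -5.80 ± 0.36 (adjusted p = 3.9e-09). Stat3 was higher (139.8 ± 29.2 FPKM at D16, against 56.6 ± 14.3 FPKM at D0, log2 change 1.30 ± 0.18, adjusted p = 1.8e-05). Of the complement and acute phase genes, 1 of 9 members was called higher and 6 lower (median change -2.27). Of the 6 detected in both groups, 1 was higher and 3 lower (median change -0.89). The following 2 genes reached 1 FPKM in D0 libraries only. Cp, the copper oxidase ceruloplasmin, had 0.024, 0.0362 and 0.0321 FPKM at D16, against 35.8, 20.3 and 57.9 FPKM at D0, a log2 change of -5.12 ± 0.41 (adjusted p = 5.8e-08). The pentraxin Ptx3 had 0.835, 0.667 and 0.421 FPKM at D16, against 36.2, 98.98 and 73.4 FPKM at D0, a log2 change of -5.32 ± 0.46 (adjusted p = 1.2e-07).

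**Figure D4:**
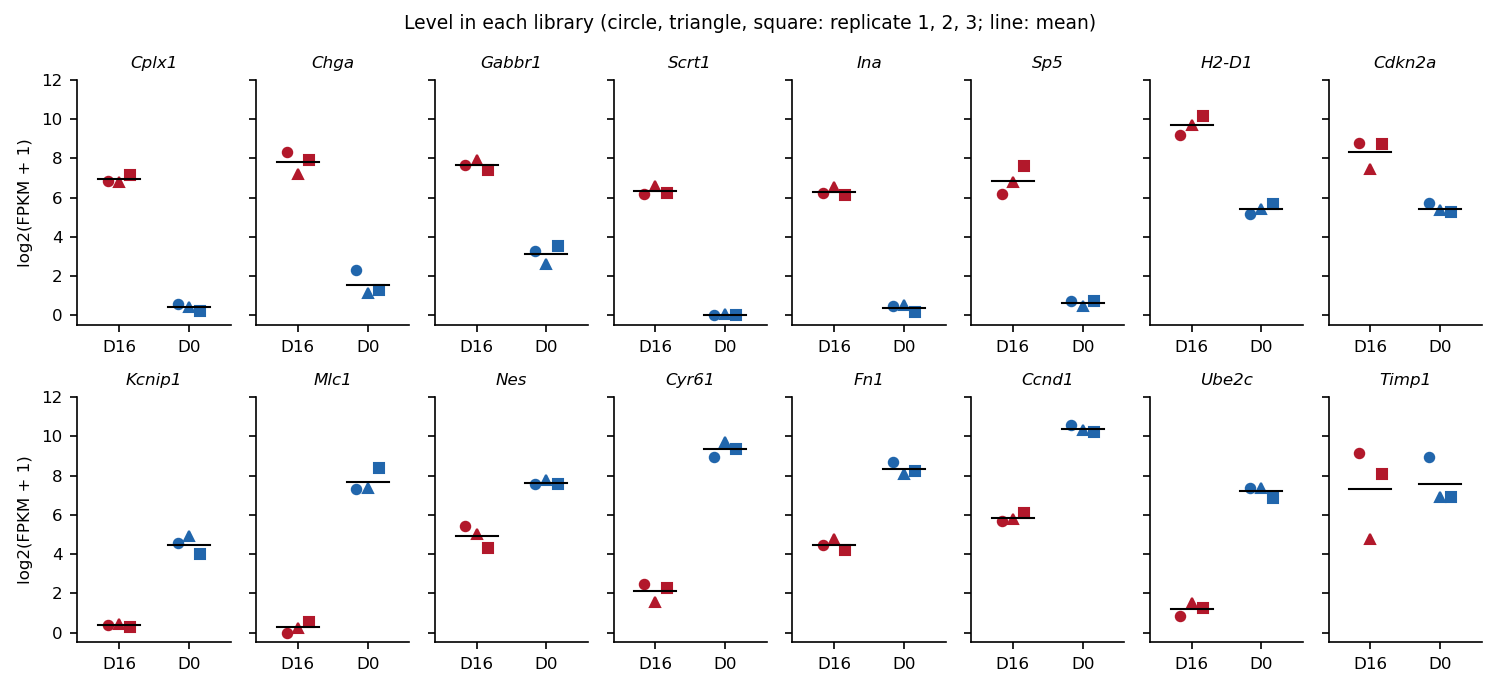
Level of 16 genes in each library as log2(FPKM + 1), D16 in red on the left and D0 in blue on the right of each panel; circles, triangles and squares are replicates 1, 2 and 3 and the line is the group mean. Of the upper genes all 3 D16 values lie above D0, of the first 7 lower genes all lie below, and Timp1 overlaps.

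Of the lysosomal genes, 16 of 31 members were called higher and 1 lower (median change 1.27). Of the 31 detected in both groups, 16 were higher and 1 lower. Cd68, a lysosomal membrane protein also used as a macrophage marker, had 194, 723 and 392 FPKM at D16, against 17.5, 21.6 and 13.4 FPKM at D0, a log2 change of 4.39 ± 0.51 (adjusted p = 2.6e-06), while the microglial markers above were at or near 0 in the same libraries. Ctsb, cathepsin B, had 811, 679 and 773 FPKM at D16, against 201, 144 and 243 FPKM at D0, a log2 change of 1.97 ± 0.23 (adjusted p = 2.6e-06). Laptm4b had 395, 387 and 430.5 FPKM at D16, against 58.6, 48.9 and 53.1 FPKM at D0, a log2 change of 2.90 ± 0.16 (adjusted p = 1.3e-09). Mcoln1, the lysosomal calcium channel, had 134, 152 and 150.5 FPKM at D16, against 26.02, 17.7 and 22.1 FPKM at D0, a log2 change of 2.69 ± 0.15 (adjusted p = 1.3e-09). Groups did not overlap for any of these. Ctsd, the most abundant cathepsin, was not called (1527 ± 243 FPKM at D16, against 1082 ± 132 FPKM at D0, log2 change 0.49, 95% interval 0.08 to 0.90). Ctsf, the lower member, changed by -1.07 ± 0.24, by -0.73 without D16 replicate 2 and by -0.93 without D0 replicate 3.

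Ftl1, the ferritin light chain, had 10461, 7006 and 7585 FPKM at D16, against 2580.1, 2648 and 2149.5 FPKM at D0, a log2 change of 1.75 ± 0.26 (adjusted p = 3e-05), whereas Fth1, the heavy chain, had 897, 1158 and 688 FPKM at D16, against 2682, 2662 and 2401 FPKM at D0, a log2 change of -1.53 ± 0.23 (adjusted p = 3.1e-05). The light chain was thus above the heavy chain in every D16 library, and below it in every D0 library, by a small margin there. Mt1, a metallothionein, had 5554, 5169 and 5430.3 FPKM at D16, against 763, 837 and 1239 FPKM at D0, a log2 change of 2.54 ± 0.39 (adjusted p = 4e-05). Mt3, the metallothionein of brain, had 276, 287 and 373 FPKM at D16, against 1583, 2444 and 2324 FPKM at D0, a log2 change of -2.75 ± 0.43 (adjusted p = 5.9e-05). In the stress list, 8 of 27 members were called higher and 3 lower (median change 0.20). Of the 27 detected in both groups, 8 were higher and 3 lower. Ddit3, which encodes CHOP, had 202, 142 and 142 FPKM at D16, against 30.2, 23.8 and 17.98 FPKM at D0, a log2 change of 2.72 ± 0.28 (adjusted p = 8.7e-07). Atf3 had 46.7, 80.3 and 53.8 FPKM at D16, against 3.61, 5.995 and 7.22 FPKM at D0, a log2 change of 3.22 ± 0.35 (adjusted p = 1.3e-06). Hspa5, the chaperone of the endoplasmic reticulum, was not called (352 ± 57.6 FPKM at D16, against 359.9 ± 23.6 FPKM at D0, log2 change -0.04, 95% interval -0.45 to 0.37), and Nqo1, an antioxidant enzyme, had 2.81, 2.27 and 1.35 FPKM at D16, against 18.6, 33.1 and 22.2 FPKM at D0, a log2 change of -3.02 ± 0.35 (adjusted p = 3.1e-06).

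Of 33 respiratory chain subunits 32 were not called, with a median change of 0.00. The called subunit, Uqcrh, was higher by 1.14 ± 0.24 and by 1 without D16 replicate 3, where it was not called. Of glucose metabolism genes, 2 of 29 members were called higher and 10 lower (median change -0.32). Of the 28 detected in both groups, 1 was higher and 10 lower. Pdk2, a kinase that holds back pyruvate oxidation, had 6.98, 7.16 and 8.55 FPKM at D16, against 38.6, 35.9 and 36.5 FPKM at D0, a log2 change of -2.15 ± 0.18 (adjusted p = 8.6e-08). Slc16a3, a lactate exporter, had 15.9, 21.99 and 28.2 FPKM at D16, against 0.865, 0.339 and 0.817 FPKM at D0, a log2 change of 3.76 ± 0.28 (adjusted p = 2.3e-08). Of the sterol and fatty acid genes 22 of 28 were not called, 1 was higher and 5 were lower, with 3 lower without D16 replicate 1 and 8 lower without D16 replicate 2. Dhcr7, the last enzyme of cholesterol synthesis, had 49.9, 67.8 and 51.3 FPKM at D16, against 12.3, 8.77 and 13.8 FPKM at D0, a log2 change of 2.19 ± 0.28 (adjusted p = 8.2e-06). Fads2, a desaturase, had 27.8, 67.3 and 24.6 FPKM at D16, against 151, 444 and 216 FPKM at D0, a log2 change of -2.73 ± 0.36 (adjusted p = 8.9e-06). Ckb, the brain creatine kinase, was lower, with 509, 644 and 513 FPKM at D16, against 2279.7, 3337 and 2992 FPKM at D0, a log2 change of -2.36 ± 0.21 (adjusted p = 1.9e-07).

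Of the Wnt pathway genes, 10 of 26 members were called higher and 6 lower (median change 0.56). Of the 22 detected in both groups, 7 were higher and 6 lower. Sp5, a zinc-finger factor directly induced by beta-catenin (chromosome 2, 70474923 to 70477726), had 72.3, 109 and 193 FPKM at D16, against 0.665, 0.393 and 0.639 FPKM at D0, a log2 change of 6.22 ± 0.44 (adjusted p = 1.7e-08). Axin2, a feedback inhibitor, had 38.7, 98.5 and 148 FPKM at D16, against 12.3, 15.8 and 11.7 FPKM at D0, a log2 change of 2.57 ± 0.41 (adjusted p = 6.9e-05). Lef1, a nuclear partner of beta-catenin, had 8.55, 15.01 and 28.8 FPKM at D16, against 0.469, 0.328 and 0.318 FPKM at D0, a log2 change of 3.60 ± 0.39 (adjusted p = 1.3e-06). Each of the 3 was higher in every D16 library and highest in D16 replicate 3. Sfrp2, a secreted modulator, had 199, 128 and 89.3 FPKM at D16, against 1.001, 0.138 and 0.184 FPKM at D0, a log2 change of 6.57 ± 0.29 (adjusted p = 1.6e-10). Wnt7a, a ligand of neural progenitors, had 2.44, 3.504 and 3.23 FPKM at D16, against 14.1, 18.8 and 24.97 FPKM at D0, a log2 change of -2.29 ± 0.20 (adjusted p = 1.1e-07). Ctnnb1, beta-catenin itself, was not called (323 ± 53.5 FPKM at D16, against 369 ± 42.8 FPKM at D0, log2 change -0.20, 95% interval -0.57 to 0.18).

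Of the Notch genes, 3 of 17 members were called higher and 6 lower (median change -0.45). Of the 15 detected in both groups, 2 were higher and 5 lower. Notch1 had 8.56, 8.11 and 5.02 FPKM at D16, against 26.6, 17.3 and 29.6 FPKM at D0, a log2 change of -1.62 ± 0.42 (adjusted p = 0.0035). Lfng, which modifies Notch, had 0.986, 0.587 and 0.806 FPKM at D16, against 19.5, 26.3 and 36.6 FPKM at D0, a log2 change of -3.95 ± 0.32 (adjusted p = 7e-08). Jag2, a ligand, was higher (8.72 ± 1.01 FPKM at D16, against 0.873 ± 0.211 FPKM at D0, log2 change 2.38 ± 0.24, adjusted p = 5.7e-07). Of the immediate-early and cAMP-responsive genes, 11 of 28 members were called higher and 5 lower (median change 0.76). Of the 24 detected in both groups, 8 were higher and 4 lower. Without D0 replicate 2, 3 members were called lower. Dusp4, a phosphatase that ends ERK signalling, had 143, 128 and 82.95 FPKM at D16, against 28.2, 10.7 and 10.2 FPKM at D0, a log2 change of 2.89 ± 0.38 (adjusted p = 8.8e-06). Egr4 had 4.72 ± 0.626 FPKM at D16, against 0.0594 ± 0.0662 FPKM at D0 (log2 change 2.43 ± 0.24, adjusted p = 5.5e-07). Fos, the gene most used to mark activity, was not called (16.6 ± 3.72 FPKM at D16, against 15.1 ± 7.58 FPKM at D0, log2 change 0.26, 95% interval -1.17 to 1.68), and Fosl1 was lower (1.84 ± 0.839 FPKM at D16, against 10.2 ± 6.06 FPKM at D0, log2 change -1.91 ± 0.31, adjusted p = 8.3e-05). Of the BET, Myc and Hexim genes, 2 of 15 members were called higher and 2 lower (median change 0.17). Of the 15 detected in both groups, 2 were higher and 2 lower. Myc had 2.07, 1.19 and 0.764 FPKM at D16, against 19.97, 9.84 and 12.97 FPKM at D0, a log2 change of -2.69 ± 0.27 (adjusted p = 5.8e-07). Serpini1, a neuronal protease inhibitor listed with them, was higher (32.4 ± 6.02 FPKM at D16, against 2.72 ± 0.261 FPKM at D0, log2 change 3.15 ± 0.22, adjusted p = 1.4e-08).

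Of the guidance ligands, 8 of 30 members were called higher and 12 lower (median change -0.31). Of the 26 detected in both groups, 5 were higher and 11 lower. Ntn4, a laminin-like netrin, had 5.25, 2.503 and 1.95 FPKM at D16, against 30.6, 48.3 and 48.5 FPKM at D0, a log2 change of -3.41 ± 0.30 (adjusted p = 1.7e-07). Efna3 went the other way, with 70.9, 44.9 and 62.3 FPKM at D16, against 7.88, 7.81 and 6.55 FPKM at D0, a log2 change of 2.82 ± 0.18 (adjusted p = 5.8e-09). Of the guidance receptors, 11 of 29 members were called higher and 3 lower (median change 0.00). Of the 25 detected in both groups, 7 were higher and 3 lower. Without D16 replicate 1 or without D0 replicate 2, 5 members were called lower. Robo1, a Slit receptor, had 29.3, 52.4 and 23.9 FPKM at D16, against 3.32, 1.002 and 3.69 FPKM at D0, a log2 change of 3.32 ± 0.37 (adjusted p = 1.6e-06). Unc5a, a netrin receptor, had 9.54, 12.5 and 7.78 FPKM at D16, against 0.0472, 0 and 0.0287 FPKM at D0, a log2 change of 3.39 ± 0.27 (adjusted p = 5.9e-08). Plxnb2 was lower (31.2 ± 5.88 FPKM at D16, against 107 ± 12.2 FPKM at D0, log2 change -1.75 ± 0.25, adjusted p = 1.9e-05). Of the synaptic organizers and adhesion genes, 13 of 29 members were called higher and 2 lower (median change 0.92). Of the 21 detected in both groups, 6 were higher and 2 lower. L1cam, an axonal adhesion protein, had 15.5, 24.6 and 22.6 FPKM at D16, against 0.192, 0.119 and 0.233 FPKM at D0, a log2 change of 4.19 ± 0.30 (adjusted p = 1.8e-08).

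Among the neurotrophic factors and their receptors, Ntrk2, the BDNF receptor that astrocytes also carry, had 8.56, 8.41 and 6.26 FPKM at D16, against 41.3, 28.8 and 70.1 FPKM at D0, a log2 change of -2.37 ± 0.26 (adjusted p = 1.3e-06). Cntf, a survival factor made by glia, had 0.44, 0.419 and 0.832 FPKM at D16, against 25.9, 80.8 and 53.8 FPKM at D0, a log2 change of -4.99 ± 0.37 (adjusted p = 2.7e-08). Ret, the GDNF receptor, had 5.22, 5.93 and 4.596 FPKM at D16, against 0.993, 0.0593 and 1.45 FPKM at D0, a log2 change of 1.85 ± 0.29 (adjusted p = 5.9e-05). Over the list, 6 of 17 members were called higher and 4 lower (median change 0.21). Of the 13 detected in both groups, 4 were higher and 2 lower.

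**Figure D5:**
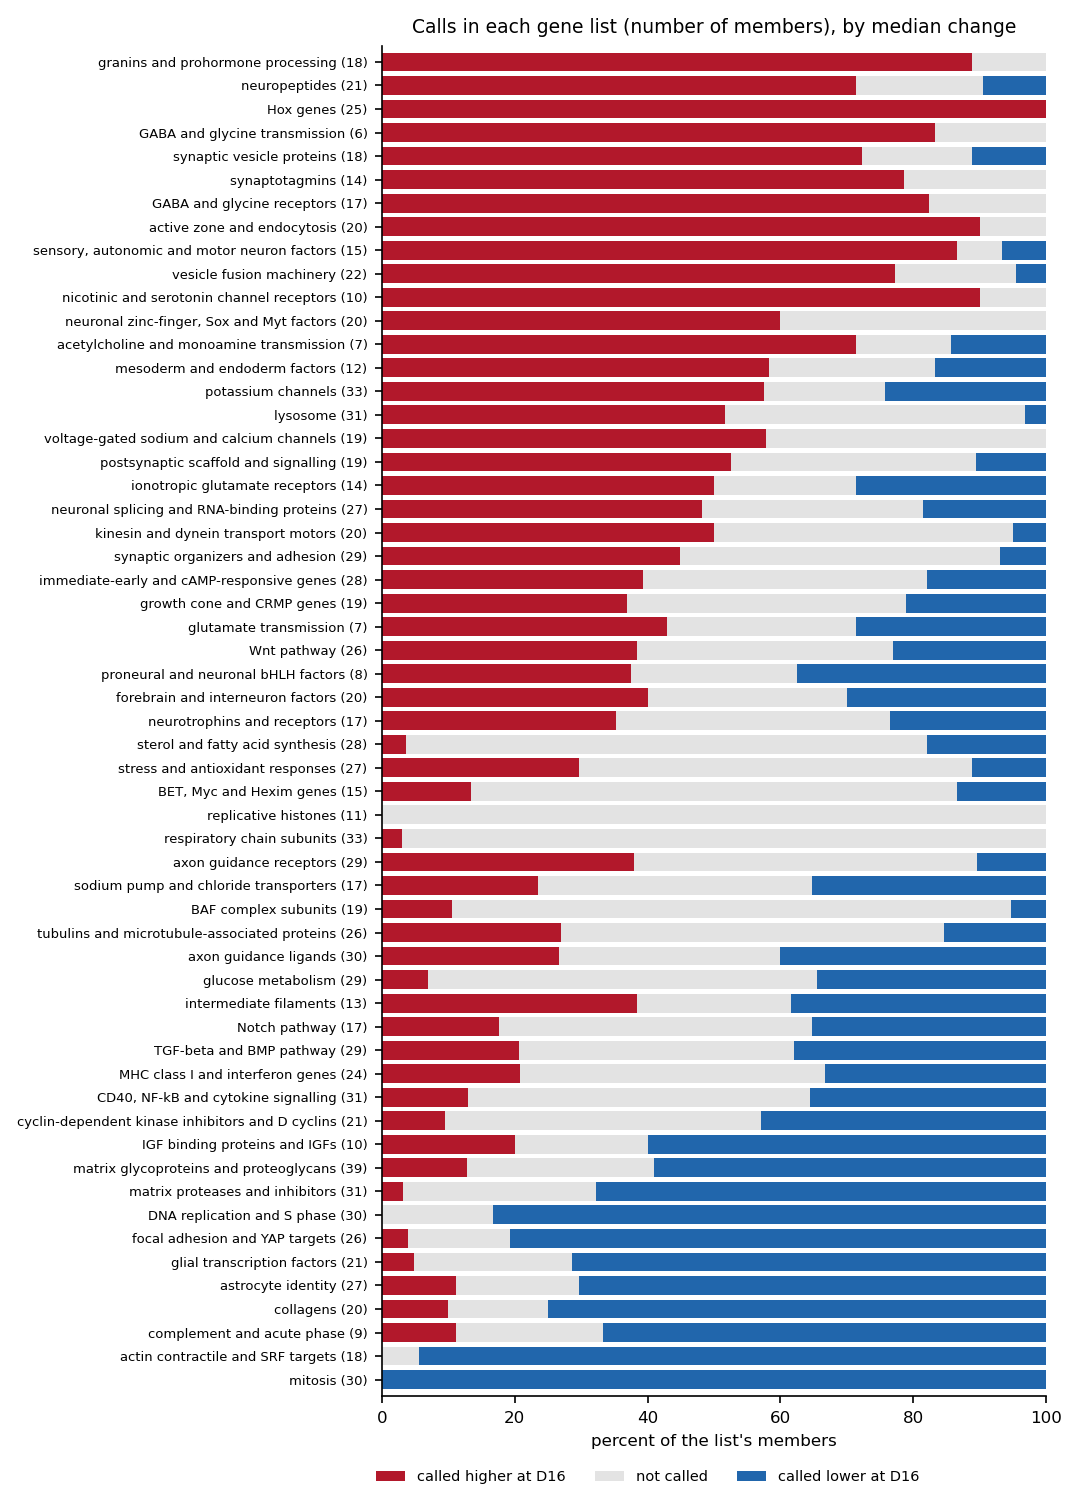
Percent of the members of each of the 57 gene lists that were called higher at D16 (red), not called (grey) or called lower (blue), ordered by median log2 change, with the number of members in parentheses. Granin, neuropeptide and Hox lists stand at the top, respiratory chain and replicative histone lists hold almost no calls, and contractile and mitosis lists stand at the bottom.

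By mean level the leading genes were Eef1a1, Ftl1 and Rps26 at D16, and Tmsb4x, Igfbp2 and Vim at D0. Eef1a1, a translation factor, had 10615, 18944 and 11796 FPKM at D16, against 4826, 4700.2 and 3825 FPKM at D0, a log2 change of 1.59 ± 0.28 (adjusted p = 0.00018). Tmsb4x, an actin-sequestering thymosin, had 1669, 2343 and 2802 FPKM at D16, against 7397, 11906 and 6729 FPKM at D0, a log2 change of -1.92 ± 0.42 (adjusted p = 0.00099). D16 replicate 2 was the highest for Eef1a1, and D0 replicate 2 the highest for Tmsb4x, with no overlap for either. Pea15a, an astrocyte phosphoprotein, had 200.3, 153 and 150.5 FPKM at D16, against 2769, 3830.1 and 4102 FPKM at D0, a log2 change of -4.39 ± 0.22 (adjusted p = 4.7e-10). Ribosomal protein genes and Eef1a1 have many near-copies in the genome, so their levels are uncertain, and among them Rpl41 was not called (4194 ± 144 FPKM at D16, against 4264 ± 1485 FPKM at D0, log2 change 0.03, 95% interval -0.57 to 0.63).

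Among members of at least 50 FPKM, the changes bounded closest to 0 were those of Tm9sf2, with 67.4, 58.9 and 66.8 FPKM at D16, against 66.99, 63.1 and 68.3 FPKM at D0 (log2 change -0.04, 95% interval -0.28 to 0.20), Atp1b3, a beta subunit of the sodium pump, with 100.2, 99.4 and 99.6 FPKM at D16, against 95.2, 111 and 93.3 FPKM at D0 (log2 change 0.00, 95% interval -0.28 to 0.28), and the helicase gene Ddx1, with 79.6, 89.02 and 83.7 FPKM at D16, against 92.4, 80.7 and 86.3 FPKM at D0 (log2 change -0.04, 95% interval -0.29 to 0.21). The ranges of the groups overlapped in each of these genes. At the other extreme, some called genes differed widely among the D16 libraries. Hddc2 had 122, 506 and 1155 FPKM at D16, against 29.4, 43.9 and 36.97 FPKM at D0, and its change was 3.48 ± 0.55 with all libraries and 2.75 without D16 replicate 3. Vip had 112, 789 and 1190.5 FPKM at D16, against 0.137, 0.475 and 0 FPKM at D0, and its change of 8.64 ± 0.69 moved to 9.67 without D16 replicate 1 and 7.97 without D16 replicate 3. Trpm1 had 2.43, 13.5 and 48.1 FPKM at D16, against 0.456, 0.398 and 0.157 FPKM at D0, with a change of 3.34 ± 0.64 that was 4.33 without D16 replicate 1 and 2.40 without D16 replicate 3. In all 3 genes D16 replicate 1 was the lowest and D16 replicate 3 the highest.

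The levels of the intermediate days and of primary neurons are set beside these values as a description, without a test, as means of 3 libraries each. Cplx1 averaged 0.335, 28.5, 85.98 and 123 FPKM on days 0, 4, 8 and 16, and 138 FPKM in PN. Mlc1, an astrocyte end-foot protein, averaged 218, 9.09, 0.861 and 0.214 FPKM on days 0, 4, 8 and 16, and 38.1 FPKM in PN. Complexin 1 had come to most of its D16 level by day 8, and the end-foot gene had lost most of its D0 level by day 4. Ccnd1 averaged 1348, 445, 124 and 57.4 FPKM on days 0, 4, 8 and 16, and 15.6 FPKM in PN, and Cdkn2a 42.9, 160.2, 325 and 348 FPKM on days 0, 4, 8 and 16, and 0.87 FPKM in PN. Hoxb7 averaged 0, 5.03, 19.7 and 46.8 FPKM on days 0, 4, 8 and 16, and 0 FPKM in PN, and H2-D1 41.97, 596, 839.6 and 856 FPKM on days 0, 4, 8 and 16, and 58.3 FPKM in PN. For the last 3 the D16 and PN levels were far apart. Gabbr1 averaged 8.11, 49.7, 137 and 204 FPKM on days 0, 4, 8 and 16, and 109 FPKM in PN, and Ina 0.307, 24.99, 47.2 and 78.9 FPKM on days 0, 4, 8 and 16, and 151 FPKM in PN. Tuba1a averaged 1079, 746, 459 and 386 FPKM on days 0, 4, 8 and 16, and 6597 FPKM in PN. Vgf averaged 58.6, 3029, 3106 and 2302 FPKM on days 0, 4, 8 and 16, and 84.6 FPKM in PN, which placed D16 above PN, whereas Tuba1a and Ina were highest in PN.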

How the data were processed

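The authors deposited 1 table of FPKM values, fragments per kilobase of transcript scaled to the library total, for 24346 gene symbols in 15 libraries, of which the D16 and D0 groups hold 3 each. The genome build was mm10 (GRCm38), per the submitters' processing notes, and the aligner, the quantifier and the annotation are not given in the sources used here. FPKM divides each gene by its length and each library by its own total, so the most abundant genes move all the others. No counts were used and the depth in reads is unknown, but the steps between low values put the depth of the D16 libraries at 1, 1.1 and 0.75 times that of D0 replicate 1, and that of D0 replicates 2 and 3 at 1.45 and 0.821 times.

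Values were taken as log2(FPKM + 1). Genes at 1 FPKM in at least 3 of the 15 libraries, 13983 in all, were fitted with limma 3.58.1 in R 4.3.3 (trended variance, 1 mean per group, 10 residual degrees of freedom). Adjusted p is Benjamini-Hochberg over all of them, and a call needs an adjusted p below 0.05 and a log2 change of at least 1. Tables were made with Python 3.11.15, and the fit was tested on simulated data. Of the symbols, 24229 matched the GRCm38.p6 annotation, 13146 of them among the 13180 members; 4866 genes were at 0 in every library.

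The members and lists were chosen with earlier results of these data known. Genes were named by a rule: the largest changes without overlap, the leading called members and the exceptions of each list, both genes of each pair, the most abundant genes, those with an interval closest to 0, those that varied most at D16, and those at the edge of the filter. Further genes in the text were chosen after their values were seen.

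Alternatives were another pseudocount, filter, scaling, set of libraries, replicate block and threshold, and leaving out each library in turn. Lists were described by counts, with no test of a list as a whole. Some genes that the rule names are not reported here.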

Additional observations from a re-analysis of the deposited data

How the results depend on the processing

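The counts of 2258 genes called higher and 2582 called lower at D16 stayed within 1.5 times their size under every alternative but one. Without a minimum on the log2 change, an adjusted p alone called 4040 genes higher and 4396 lower, since every smaller change that passed the p threshold was then counted. Leaving out each library in turn gave 2135 to 2353 higher and 2398 to 2698 lower. A pseudocount of 0.1 gave 2583 higher and 2853 lower, and a filter at 5 FPKM, which kept 11185 members, gave 1860 and 2121. Quantile normalization, which moved the median change of all genes tested from -0.006 to 0.053, gave 2331 higher and 2387 lower, so that 49.4% of calls were higher, against 46.7% without it. The deviations of same-numbered D16 and D0 libraries from their group means correlated at 0.0825, -0.0117 and -0.00742. With 3 libraries a group, such correlations cannot show whether the libraries were paired. The fit with the replicate block called 2265 higher and 2587 lower. No gene was called in the opposite direction under any of these settings. Of 1247 genes in the lists and named sets, 796 were called and 715 of them remained called whichever library was left out. List counts that moved by over 1.5 times are given in the text or rest on small counts, such as the 1 lower BAF subunit, which became 2 in 4 of the leave-one-out fits. A filter at 5 FPKM took out many lists' low genes, leaving 9 of 25 Hox genes called and 5 of 13 factors of sensory, autonomic and motor neurons. With 3 libraries a group the median standard error was 0.2 on the log2 scale, and many changes below the required size of 1 passed the p threshold. Differences below 1 FPKM were not read as changes, since depth in reads is unknown.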
